A study of Mus musculus with 33 samples.

Results

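Wild-type embryoid bodies were compared between day 6 and day 8 of differentiation, the last step of a time course that ran from undifferentiated mouse embryonic stem cells (day 0) through days 4, 6 and 8. The comparison held 5 of the 33 RNA-seq libraries of the series, taken by line and day alone: replicates 1, 2 and 3 of day 8, and replicates 2 and 3 of day 6. Throughout the text, values are given in that order of replicates. All 5 libraries came from E14Tg2a, a mouse embryonic stem cell line of the 129/Ola strain with the WT genotype, which was maintained on gelatine in medium with fetal calf serum and LIF, the cytokine that sustains self-renewal. Per the methods, the cells formed aggregates that were cultured in suspension without LIF until day 4. They were then replated sparsely on gelatinised dishes, where they grew out until day 6 or day 8. Both groups thus share line, genotype, medium and handling. They differ in time and also in replicates, since replicate 1 has no day 6 library. Replicates are described as independent differentiation assays run in parallel with the mutant clones. The remaining libraries were wild type at days 0 and 4, and the clones dK9.1 and dK9.2 at the same 4 days; each clone is a single line lacking a region upstream of *Nanog* that carries histone H3 lysine 9 tri-methylation. They served for the shared estimate of the spread between replicates and for the comparison of the last step at the end. Expression was given as TPM, a relative transcript abundance scaled for transcript length, for 16336 listed genes.

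An embryoid body is a ball of differentiating stem cells in which some of the events of the early mouse embryo unfold without a uterus. Its outer layer resembles the visceral endoderm, the extra-embryonic epithelium that feeds the embryo by secreting apolipoproteins, transthyretin and other plasma proteins. Its interior passes through a state like the epiblast and then through one like the primitive streak, where *T* (brachyury), *Mixl1* and *Eomes* come on under Nodal and WNT signals and epithelial cells become mesoderm and endoderm. Mesoderm then gives rise to heart muscle, vessel endothelium, connective tissue and the first red cells, which carry embryonic globins. These were whole cultures, so a lower value can stand for fewer cells of a type or for less RNA per cell, and the 2 cannot be told apart here.

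Between day 6 and day 8 the data showed the streak programme going down and the programmes of blood, endothelium, heart and connective tissue going up. Of the secreted proteins of visceral endoderm, 9 of 18 listed genes were called higher, a count that was 1 without day 6 replicate 2. Of the 16336 genes, 1066 (6.53%) were called higher on day 8 and 446 (2.73%) were called lower, where a call needed a limma adjusted p under 0.05 and an absolute log2 fold change above 1 on the log2(TPM + 1) scale. That scale understates the change of genes with low values. The median log2 fold change over all genes was 0.05. The share of a gene list that was called is given in percent, to be set beside these 6.53% and 2.73%. A change of more than 3 on the log2 scale was reached by 36 of the genes called higher and by 22 of those called lower. The steepest rises with non-overlapping libraries and at least 5 TPM on day 8 were those of *Hba-x*, *Hbb-bh1*, *Hba-a1*, *Postn*, *Hba-a2*, *Hbb-bs*, *Pyy*, *Igfbp5*, *Hbb-y* and *Col3a1*, of which 6 encode globins. Among the steepest falls were *T*, *Msgn1*, *Mixl1*, *Eomes*, *Tdgf1* and *Fgf5*, all genes of the streak or the epiblast, and *Pim2*, a serine/threonine kinase gene. For 8594 genes (52.6%) the 3 day 8 libraries lay wholly above or wholly below the 2 day 6 libraries, so a lack of overlap alone is common here; it held for 1058 of the genes called higher and 440 of those called lower.

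**Figure D1:**
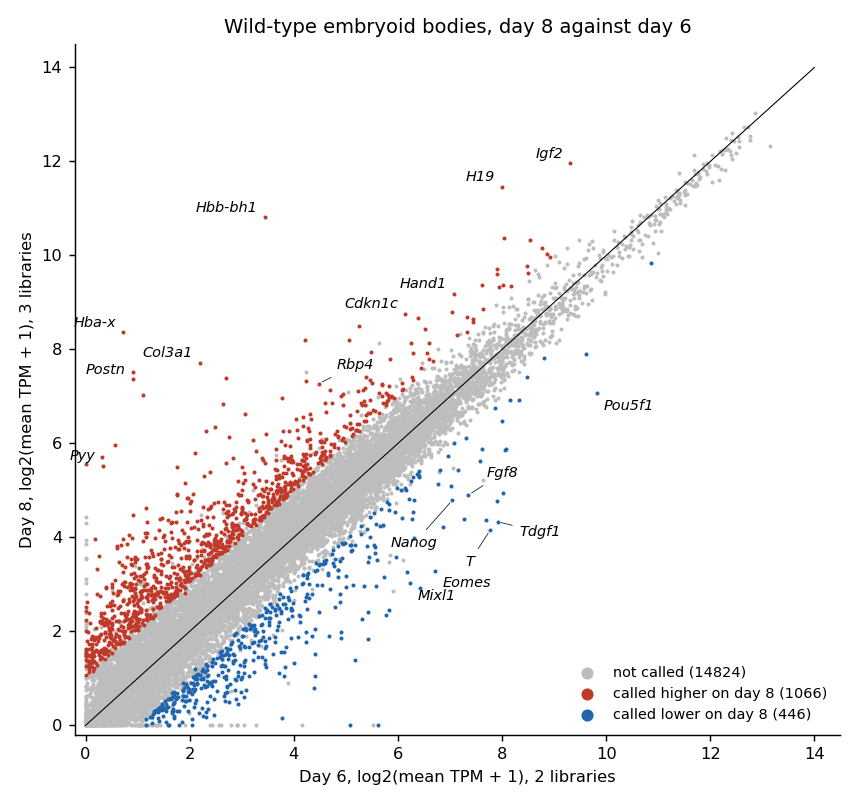
Mean expression of each of the 16336 listed genes on day 6 (x axis, 2 libraries) and day 8 (y axis, 3 libraries) of wild-type embryoid bodies, both as log2(mean TPM + 1). Red points are the 1066 genes called higher on day 8, blue points the 446 called lower and grey points the others; the line marks equal levels. Embryonic globins, *Igf2* and *H19* lie far above the line, and *T*, *Eomes*, *Mixl1* and *Tdgf1* far below it.

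The day 8 libraries differed more among themselves than the day 6 pair, with a median SD over genes of 0.215 against 0.107 on the log2 scale. Day 8 replicate 2 held the highest of the 3 day 8 values for 790 of the 1066 genes called higher (74.1%), and replicate 1 held the highest for 283 of the 446 genes called lower (63.5%), so replicate 2 had moved furthest for the rising genes and replicate 1 least for the falling ones. Mitochondrially encoded transcripts took 2.41 to 3.34% of all TPM and ribosomal protein genes 21.6 to 26.1%, over both days. Globin transcripts took 0.001 to 0.002% on day 6, and 0.133, 0.525 and 0.112% on day 8. The part these differences play in the calls was not tested; values per library are given with each result. With 3 libraries against 2, the smallest two-sided exact permutation p is 0.2. Calls therefore rest on the fit across all genes. In it the 2 day 6 libraries share an estimate of the spread with the other groups. With the replicate number added as a block, 1112 genes were called higher and 529 lower. With only the compared groups in the fit, 472 genes were called higher and 258 lower, and without day 6 replicate 3 the count of genes called lower was 295.

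Genes of the naive pluripotent state, the ground state of stem cells, fell for the most part. Of the 14 naive genes listed, 8 were called lower and 0 higher (57.1% lower), with a median log2 fold change of -1.41, and their summed level was 1084 and 1059 TPM on day 6 and 277, 439 and 325 TPM on day 8. *Nanog* (chromosome 6, mm10, chr6:122707489-122714633), the homeobox gene whose upstream region is deleted in the mutant clones of the study, was at 122 and 140.5 TPM on day 6 and 34.6, 23.7 and 22 TPM on day 8. The day 8 libraries all lay below the day 6 pair, with replicate 1 the highest of them, and *Nanog* fell by 2.28 on the log2 scale (SE 0.3, limma adjusted p = 2.02e-05). *Nanog* had been at 326, 338 and 368 TPM on day 0 and at 183, 207 and 189 TPM on day 4. *Zfp42* (Rex1), a zinc finger gene used as a marker of naive cells, stood at 40.5 and 43.4 TPM on day 6 and 8.08, 14.5 and 7.99 TPM on day 8. It fell by 1.99 on the log2 scale (SE 0.34, limma adjusted p = 0.000195). *Nr0b1* (Dax1), an orphan nuclear receptor gene, went from above 5 TPM to below 1 TPM in every library, with 5.52 and 5.35 TPM on day 6 and 0.524, 0.753 and 0.543 TPM on day 8, and fell by 2.005 on the log2 scale (SE 0.35, limma adjusted p = 0.00026).

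*Dppa5a*, which encodes an abundant RNA-binding protein of stem cells, fell by 1.76 on the log2 scale (SE 0.36, limma adjusted p = 0.000953) from 799 and 755 TPM on day 6 to 154, 327 and 238 TPM on day 8. *Esrrb*, an orphan receptor gene of the naive network, fell by 1.56 on the log2 scale (SE 0.31, limma adjusted p = 0.000802). *Klf2*, a Kruppel-like factor gene, fell by 1.5 on the log2 scale (SE 0.37, limma adjusted p = 0.00408). *Fgf4*, the autocrine ligand of stem cells, fell by 1.54 on the log2 scale (SE 0.29, limma adjusted p = 0.000463), and *Dppa3*, a maternal factor gene that germ cells also express, fell by 1.33 on the log2 scale (SE 0.43, limma adjusted p = 0.0229). For each of these genes, no day 8 library reached the day 6 levels. *Tcl1*, a cofactor of AKT, was at 3.89 and 3.15 TPM on day 6 and 1.03, 1.52 and 1.21 TPM on day 8. It had a log2 difference of -1.01 that did not pass the test (SE 0.41, limma adjusted p = 0.0747). *Klf5* was at 12.7 and 14.2 TPM on day 6 and 7.45, 7.44 and 7.39 TPM on day 8, and its log2 fold change of -0.78 was under the size that a call needed (limma adjusted p = 0.0135). *Prdm14*, *Tfcp2l1*, *Tbx3* and *Klf4* were not called either, and *Klf4*, at 4.33 and 2.91 TPM on day 6 and 6.34, 4.45 and 6.02 TPM on day 8, lay higher on day 8 in each library by 0.52 on the log2 scale (limma adjusted p = 0.143). The call of *Dppa3* was lost without day 6 replicate 2 (-1.39), day 6 replicate 3 (-1.28), day 8 replicate 1 (-1.23) or day 8 replicate 3 (-1.21), where each bracket gives the log2 fold change.

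Genes of the core pluripotency network, which all pluripotent states share, fell as well. In the core list, 9 of 12 listed genes were called lower and 0 higher (75% lower), with a median of -2.1, and the summed level was 1651 and 1901 TPM on day 6 and 618, 333 and 377 TPM on day 8. *Pou5f1* (Oct4), the POU factor gene at the centre of that network, was at 848 and 959 TPM on day 6 and 215, 92.3 and 91 TPM on day 8. All day 8 values were lower, replicate 1 standing above the other two, and *Pou5f1* fell by 2.88 on the log2 scale (SE 0.35, limma adjusted p = 1.07e-05). *Tdgf1* (Cripto), the co-receptor of Nodal, fell by 3.84 on the log2 scale (SE 0.47, limma adjusted p = 8.3e-06) from 218 and 263 TPM on day 6 to 37.2, 9.06 and 11.2 TPM on day 8. Its pseudogene *Tdgf1-ps1* followed at 73.3 and 95.8 TPM on day 6 and 14, 2.21 and 3.41 TPM on day 8, and reads of such near-identical copies may be split between them, so the 2 values are uncertain. *L1td1*, an RNA-binding protein gene derived from a LINE-1 element, fell by 2.78 on the log2 scale (SE 0.37, limma adjusted p = 2.15e-05). *Sall4* was lower in all 3 day 8 libraries, 72.5 and 75.5 TPM on day 6 and 52.2, 34.2 and 32.3 TPM on day 8, by less than a call needs (log2 fold change -0.92, SE 0.17, limma adjusted p = 0.000343). *Lin28a*, which encodes an inhibitor of let-7 maturation, was at 182 and 185 TPM on day 6 and 182, 103 and 146 TPM on day 8, and its groups overlapped (log2 fold change -0.39, SE 0.19, limma adjusted p = 0.13).

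In the list of the formative and primed epiblast, the state between naive cells and gastrulation, 6 of 8 listed genes were called lower and 0 higher (75% lower, median -2.15). *Fgf5*, the ligand gene that marks this state, was at 29.2 and 54.8 TPM on day 6 and 5.81, 0.387 and 1.52 TPM on day 8. Day 8 replicate 1 kept the most and replicate 2 was nearly empty, and *Fgf5* fell by 3.83 on the log2 scale (SE 0.73, limma adjusted p = 0.00055). *Zic2* fell by 2.99 on the log2 scale (SE 0.45, limma adjusted p = 6.31e-05), and *Otx2*, the homeobox gene of the anterior epiblast, fell by 2.45 on the log2 scale (SE 0.49, limma adjusted p = 0.000776) from 45.9 and 76.3 TPM on day 6 to 14.1, 5.12 and 13.6 TPM on day 8. *Foxd3*, a forkhead repressor gene, was at 3.65 and 9.21 TPM on day 6 and 0.874, 0.204 and 0.326 TPM on day 8 and passed below 1 TPM in all 3 day 8 libraries (log2 fold change -2.26, SE 0.45, limma adjusted p = 0.000786). The de novo methyltransferase gene *Dnmt3b* also fell, whereas *Dnmt3a* overlapped between the days at 68.1 and 64.7 TPM on day 6 and 59.8, 67.5 and 42.7 TPM on day 8 (log2 fold change -0.25, SE 0.24, limma adjusted p = 0.476). *Sox3*, at 7.5 and 8.7 TPM on day 6 and 6.33, 3.07 and 3.05 TPM on day 8, lay lower in each day 8 library without a call (log2 fold change -0.88, SE 0.39, limma adjusted p = 0.101). Genes of this list called lower numbered 2 with only the compared groups in the fit.

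Genes of the primitive streak and nascent mesoderm had the lowest median of the lists examined. Of 21 listed genes, 16 were called lower (76.2%, against 2.73% of all genes) and 0 higher, with a median of -3.000. *T*, the T-box gene that defines the streak and notochord (chromosome 17, mm10, chr17:8434423-8442496), was at 0.543, 3.82 and 0.259 TPM on day 4 and then at 211 and 224 TPM on day 6 and 44.9, 1.46 and 4.09 TPM on day 8. Its 3 day 8 values ran from near 1 TPM to near 45 TPM, replicate 1 holding the most, and all lay far below day 6. *T* fell by 4.72 on the log2 scale (SE 0.9, limma adjusted p = 0.000551). *Eomes*, a T-box gene of the anterior streak, fell by 3.98 on the log2 scale (SE 0.61, limma adjusted p = 7.1e-05) from 96.5 and 112 TPM on day 6 to 20.2, 1.4 and 4.73 TPM on day 8. *Mixl1*, the homeobox gene of mesendoderm, fell by 4.09 on the log2 scale (SE 0.89, limma adjusted p = 0.00172) from 78.8 and 69.6 TPM on day 6 to 19.2, 1.0005 and 1.13 TPM on day 8. *Msgn1*, a bHLH gene of presomitic mesoderm that was listed at 0 in all libraries of days 0 and 4, was at 37.6 and 33 TPM on day 6 and 4.59, 0 and 0.293 TPM on day 8. It fell by 4.23 on the log2 scale (SE 0.85, limma adjusted p = 0.000855). For all 4, replicate 1 stood above the other day 8 libraries and below both day 6 libraries.

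Ligand, inhibitor and transcription factor genes of the streak list fell as well. *Sp5*, a zinc finger gene induced by WNT, was at 51.7 and 59.98 TPM on day 6 and 7.64, 0.936 and 4.91 TPM on day 8. It fell by 3.62 on the log2 scale (SE 0.52, limma adjusted p = 4.15e-05). *Fgf8*, the ligand gene that drives cells out of the streak, was at 148 and 177 TPM on day 6 and 51.5, 6.56 and 28.7 TPM on day 8, with replicate 2 the lowest. It fell by 2.84 on the log2 scale (SE 0.63, limma adjusted p = 0.00179). *Mesp1* and *Mesp2*, the bHLH genes of cardiac and paraxial mesoderm, were both called lower, and *Mesp2* fell by 2.18 on the log2 scale (SE 0.31, limma adjusted p = 3.71e-05). *Lefty1*, an inhibitor of Nodal, fell by 3.000 on the log2 scale (SE 0.33, limma adjusted p = 3.94e-06), and its paralogue *Lefty2* fell by 3.21 on the log2 scale (SE 0.32, limma adjusted p = 1.62e-06). The 5 genes of the list without a call were *Cdx1*, *Cdx2*, *Cdx4*, *Wnt3* and *Evx1*. With only wild-type libraries in the fit 19 of the 21 genes were called lower, and with only the compared groups 12. *Cdx2*, a caudal homeobox gene of the posterior embryo, overlapped between the days at 73.1 and 35.6 TPM on day 6 and 97.4, 36.7 and 34.1 TPM on day 8 (log2 fold change -0.04, SE 0.71, limma adjusted p = 0.992). *Evx1*, at 56.3 and 46.5 TPM on day 6 and 30.7, 10.1 and 12.7 TPM on day 8, was lower in every day 8 library (log2 fold change -1.62, SE 0.63, limma adjusted p = 0.0597).

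**Figure D2:**
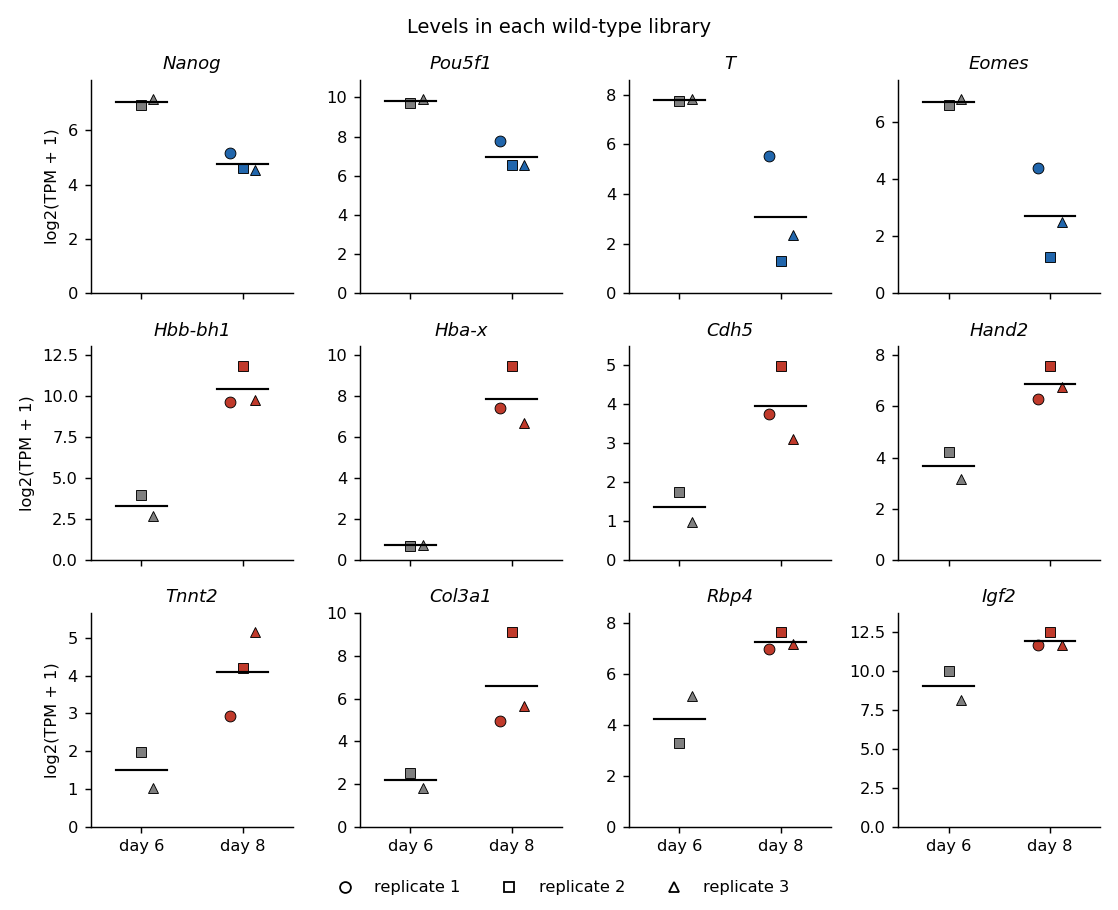
Levels of 12 genes in each wild-type library of day 6 (grey, replicates 2 and 3) and day 8 (coloured, replicates 1 to 3), as log2(TPM + 1); circles, squares and triangles are replicates 1, 2 and 3, and bars mark group means. Blue marks genes that fell and red genes that rose. The groups do not overlap in any panel; replicate 1 is the highest day 8 library for *T* and *Eomes*, and replicate 2 for *Hbb-bh1*, *Cdh5* and *Col3a1*.

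Genes of the blood list held 5 of the 10 steepest rises with non-overlapping libraries, and the globin gene *Hbb-bs*, which is not in that list, was another. Of the 18 blood genes listed, 12 were called higher (66.7%, against 6.53% of all genes) and 0 lower, with a median of 2.43, and 8 passed from under 1 TPM in both day 6 libraries to at least 1 TPM in all 3 of day 8. The embryonic globins led. *Hbb-bh1*, the embryonic beta-like globin gene on chromosome 7 (mm10, chr7:103841637-103843164), was at 14.5 and 5.38 TPM on day 6 and 809, 3735 and 866 TPM on day 8. Replicate 2 held several times the level of the other two, and each day 8 value was above both day 6 values. It rose by 7.12 on the log2 scale (SE 1.32, limma adjusted p = 0.000427). *Hba-x*, the embryonic zeta globin gene of chromosome 11 (mm10, chr11:32276400-32278116), was under 1 TPM on day 6 and reached 169, 717 and 104 TPM (log2 fold change 7.15, SE 1.18, limma adjusted p = 0.000143). *Hbb-y*, the embryonic epsilon-like gene, was at 0.306 and 0.658 TPM on day 6 and 30.5, 145 and 8.32 TPM on day 8. It rose by 4.57 on the log2 scale (SE 0.86, limma adjusted p = 0.000517).

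The globins that later dominate fetal and adult red cells rose beside the embryonic ones. *Hba-a1* was at 1.43 and 0.334 TPM on day 6 and 141, 332 and 74.4 TPM on day 8, and it rose by 6.41 on the log2 scale (SE 1.004, limma adjusted p = 9.19e-05). *Hba-a2* was at 0.917 and 1.38 TPM on day 6 and 124, 221 and 42.1 TPM on day 8, and it rose by 5.63 on the log2 scale (SE 1.04, limma adjusted p = 0.000403). The coding sequences of the pair are nearly identical, so how reads were split between them is uncertain. *Hbb-bs*, an adult beta globin gene, rose by 5.21 on the log2 scale (SE 0.81, limma adjusted p = 8.39e-05) from 0 and 0.496 TPM on day 6 to 48.7, 82.9 and 21.5 TPM on day 8, with the same uncertainty towards its neighbours in the cluster. Red-cell genes outside the globin clusters moved with them. *Alas2*, which encodes the first enzyme of haem synthesis in red cells, was at 0.917 and 0.13 TPM on day 6 and 4.67, 24.4 and 9.03 TPM on day 8. It rose by 2.94 on the log2 scale (SE 0.61, limma adjusted p = 0.00105). *Gfi1b*, a repressor gene of the red-cell and platelet lineages, was at 0.884 and 0.162 TPM on day 6 and 5.59, 30.5 and 3.4 TPM on day 8. It rose by 2.71 on the log2 scale (SE 0.77, limma adjusted p = 0.0109). The erythroid transcription factor genes *Gata1*, *Klf1* and *Nfe2* and the megakaryocyte integrin gene *Itga2b* were also called. For each globin gene named and for *Alas2* and *Gfi1b*, day 8 replicate 2 was the highest library.

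The other 6 listed genes of the blood list gave no call. *Lmo2*, a LIM adaptor gene, was at 29.2 and 14.3 TPM on day 6 and 26.2, 37.4 and 11.9 TPM on day 8 (log2 fold change 0.15, SE 0.6, limma adjusted p = 0.902). *Gata2*, a GATA factor gene of early blood, was at 19.3 and 4.87 TPM on day 6 and 23.9, 19.7 and 14.1 TPM on day 8 (log2 fold change 0.86, SE 0.6, limma adjusted p = 0.31). Both overlapped between the days. *Tal1*, *Runx1*, *Spi1* and *Epor* were not called either, and *Ptprc* (CD45) was not listed. Only *Cd68* and *Aif1* of 9 macrophage genes were listed, and neither was called: *Cd68* was at 4.05 and 3.03 TPM on day 6 and 5.16, 5.15 and 7.04 TPM on day 8, and *Aif1*, with 0.142 and 0.842 TPM on day 6 and 0.0109, 0 and 0.261 TPM on day 8, lay under 1 TPM throughout. The count of blood genes called higher was 5 with only the compared groups in the fit. The call of *Gfi1b* was lost without day 6 replicate 3 (2.36) or day 8 replicate 2 (1.86).

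The promoters of 3 red-cell genes are shown as examples. These genes went from under 1 TPM in both day 6 libraries to 4 TPM or more in each of day 8. *Hbb-y* and *Gata1* did so too and are not shown, so the windows do not stand for red-cell genes as a set. The windows run from 250 bases before to 50 bases after the gene start in RefSeq on GRCm38.p6 (mm10). Letters in capitals are matches to AGATAA, a form of the GATA factor motif, or to TATAAA, the TATA box, searched on both strands.
Hba-x, chr11:32276350-32276649, plus strand: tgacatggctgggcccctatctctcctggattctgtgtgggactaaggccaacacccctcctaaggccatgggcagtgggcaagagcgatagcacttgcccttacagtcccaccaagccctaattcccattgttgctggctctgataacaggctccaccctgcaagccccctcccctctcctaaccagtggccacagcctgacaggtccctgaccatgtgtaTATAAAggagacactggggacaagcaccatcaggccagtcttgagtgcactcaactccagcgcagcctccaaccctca
Hbb-bs, chr7:103827879-103828178, minus strand: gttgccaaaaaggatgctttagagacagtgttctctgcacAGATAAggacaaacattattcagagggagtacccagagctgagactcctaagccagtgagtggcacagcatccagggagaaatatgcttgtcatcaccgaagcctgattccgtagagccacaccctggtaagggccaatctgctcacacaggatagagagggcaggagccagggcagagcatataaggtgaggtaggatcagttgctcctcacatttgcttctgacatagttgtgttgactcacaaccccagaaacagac
Alas2, chrX:150547167-150547466, plus strand: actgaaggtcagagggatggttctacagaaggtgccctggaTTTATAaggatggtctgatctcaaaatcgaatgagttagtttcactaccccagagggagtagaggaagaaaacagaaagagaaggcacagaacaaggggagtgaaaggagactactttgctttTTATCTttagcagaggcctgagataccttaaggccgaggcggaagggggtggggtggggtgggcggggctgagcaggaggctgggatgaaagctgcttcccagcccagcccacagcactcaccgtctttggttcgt
The *Hba-x* window held TATAAA on its own strand, the *Hbb-bs* window AGATAA on its own strand, and the *Alas2* window both on the opposite strand. Of all 32851 RefSeq windows of this length, 11.18% held AGATAA and 13.62% held TATAAA on either strand. A match describes these letters and not a bound site. The reference table held a window for 11632 of the 16336 listed genes (71.2%), too few to compare shares between genes that rose and fell, and none for *Hbb-bh1*.

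Endothelial genes rose alongside blood. Of 16 listed, 12 were called higher and 0 lower (75% higher), with a median of 2.05 and a summed level of 161 and 119 TPM on day 6 and 344, 449 and 227 TPM on day 8. *Tie1*, an orphan receptor kinase gene of vessel walls, was at 0.895 and 0.41 TPM on day 6 and 10.7, 26.5 and 6.57 TPM on day 8. It rose by 3.04 on the log2 scale (SE 0.53, limma adjusted p = 0.000231). *Tek* (Tie2), the angiopoietin receptor gene, was at 1.7 and 0.723 TPM on day 6 and 10.3, 26.7 and 10.9 TPM on day 8. It rose by 2.84 on the log2 scale (SE 0.41, limma adjusted p = 3.79e-05). *Cdh5*, the gene of VE-cadherin, which holds endothelial cells together, was at 2.36 and 0.982 TPM on day 6 and 12.4, 30.8 and 7.68 TPM on day 8. Replicate 2 was the highest and replicate 3 the lowest of day 8 for *Cdh5*, as for *Tie1*, and all lay above day 6. *Cdh5* rose by 2.58 on the log2 scale (SE 0.6, limma adjusted p = 0.00255), and *Sox18*, an endothelial SOX factor gene, rose by 2.54 on the log2 scale (SE 0.52, limma adjusted p = 0.00103). *Pecam1*, *Emcn*, *Esam*, *Erg*, *Fli1*, *Cldn5*, *Plvap* and *Egfl7*, genes of junctions, surface proteins and factors of endothelium, were the others called.

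The 4 genes of the list without a call included early regulators of the lineage. *Kdr*, the VEGF receptor gene that marks the mesoderm from which both lineages come, was at 33.6 and 22.9 TPM on day 6 and 43.4, 42.6 and 26.1 TPM on day 8, with overlapping groups (log2 fold change 0.38, SE 0.57, limma adjusted p = 0.683). *Etv2*, the ETS factor gene that commits that mesoderm, lay lower in each day 8 library at 26.5 and 19.2 TPM on day 6 and 18.2, 9.46 and 7.62 TPM on day 8, without a call (log2 fold change -0.97, SE 0.59, limma adjusted p = 0.239). *Flt1* and *Eng* were not called. Endothelial genes called higher numbered 4 with only the compared groups in the fit and 6 without day 6 replicate 3. The call of *Cdh5* was lost without day 6 replicate 3 (2.2).

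Heart genes rose among transcription factors and among contractile proteins. Of 13 cardiac transcription factor genes, 9 were called higher and 0 lower (69.2% higher, median 1.37). *Hand2*, a bHLH gene of the second heart field and the right ventricle, was at 17.4 and 8.005 TPM on day 6 and 76.3, 191 and 107 TPM on day 8, with replicate 2 the highest. It rose by 3.18 on the log2 scale (SE 0.58, limma adjusted p = 0.000381). *Hand1*, its partner in the left ventricle and in extra-embryonic mesoderm, had been under 1 TPM up to day 4 and was at 187 and 81.6 TPM on day 6 and 504, 589.5 and 653 TPM on day 8. The 3 day 8 libraries of *Hand1* were close together and all above day 6, and it rose by 2.22 on the log2 scale (SE 0.57, limma adjusted p = 0.00599). *Tbx20*, a T-box gene of chamber formation, rose by 2.92 on the log2 scale (SE 0.46, limma adjusted p = 9.36e-05) from 8.71 and 3.55 TPM on day 6 to 35.8, 61.1 and 54.5 TPM on day 8, and *Gata5*, a GATA factor gene of heart and endoderm, rose by 2.41 on the log2 scale (SE 0.43, limma adjusted p = 0.000292). *Smyd1*, *Mef2c*, *Myocd*, *Tbx5* and *Nkx2-5* were the others called. *Gata4* was at 46.6 and 37.5 TPM on day 6 and 47.8, 73.6 and 67.4 TPM on day 8 (log2 fold change 0.56, SE 0.79, limma adjusted p = 0.663). *Gata6* was at 19 and 20.2 TPM on day 6 and 36.8, 76.9 and 49 TPM on day 8 (log2 fold change 1.36, SE 0.85, limma adjusted p = 0.255). Both also mark extra-embryonic endoderm, and neither passed the test.

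Of the 22 contractile genes written for heart muscle, 18 were listed, of which 7 were called higher and 0 lower (38.9% higher), with a median of 0.98; *Ttn*, *Nppa*, *Pln* and *Mybpc3* were not listed. *Tnnt2*, the gene of cardiac troponin T, was at 2.93 and 1.04 TPM on day 6 and 6.69, 17.5 and 34.5 TPM on day 8, and here replicate 3 was the highest. *Tnnt2* rose by 2.6 on the log2 scale (SE 0.47, limma adjusted p = 0.000339). *Tnni1*, the troponin I gene of the embryonic heart and slow muscle, rose by 3.22 on the log2 scale (SE 0.57, limma adjusted p = 0.000264) from 8.15 and 3.42 TPM on day 6 to 23.1, 92.5 and 91.8 TPM on day 8. *Nebl*, which encodes nebulette of the Z-disc, rose by 2.29 on the log2 scale (SE 0.33, limma adjusted p = 3.76e-05), and *Tnnc1*, the gene of slow and cardiac troponin C, was at 29.8 and 13.3 TPM on day 6 and 41.4, 58.3 and 120.4 TPM on day 8. It rose by 1.68 on the log2 scale (SE 0.45, limma adjusted p = 0.00811). *Actc1*, the cardiac actin gene, went the other way, at 20.9 and 24.5 TPM on day 6 and 10.1, 12.2 and 10.6 TPM on day 8, by just under the size for a call (log2 fold change -0.99, SE 0.34, limma adjusted p = 0.0332). *Atp2a2*, the calcium pump gene, differed little between the days at 111 and 111 TPM on day 6 and 117, 113 and 105 TPM on day 8 (log2 fold change 0.01, SE 0.11, limma adjusted p = 0.974). Cardiac transcription factor genes called higher numbered 5 with only the compared groups in the fit, and contractile genes 2 with only the compared groups in the fit and 4 without day 8 replicate 3. Contractile genes called lower numbered 1 after median-ratio rescaling or with a pseudocount of 0.1 TPM. Calls were lost without day 6 replicate 3 for *Hand1* (1.62) and *Tnnc1* (1.13), and without day 8 replicate 3 for *Tnnc1* (1.25).

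Smooth muscle genes were divided. Of 11 listed, 3 were called higher and 1 lower (27.3% higher and 9.09% lower, median 0.75); *Myh11* and *Mylk* were not listed. *Acta2*, the smooth muscle actin gene, which early heart muscle and myofibroblasts also use, was at 46.7 and 27.3 TPM on day 6 and 193, 620.00 and 263 TPM on day 8, with replicate 2 the highest. It rose by 3.11 on the log2 scale (SE 0.67, limma adjusted p = 0.00142). *Des*, the gene of the filament protein desmin, rose by 1.97 on the log2 scale (SE 0.38, limma adjusted p = 0.000614), and *Cald1* (caldesmon) rose by 1.54 on the log2 scale (SE 0.26, limma adjusted p = 0.000167). *Cnn1* (calponin) was at 32.6 and 50.01 TPM on day 6 and 19.8, 8.64 and 11.1 TPM on day 8. It fell by 1.62 on the log2 scale (SE 0.51, limma adjusted p = 0.0205). *Tagln* (transgelin) was at 164 and 172 TPM on day 6 and 190.2, 209 and 178 TPM on day 8 (log2 fold change 0.19, SE 0.76, limma adjusted p = 0.895). *Tpm1* (tropomyosin) was at 889 and 814 TPM on day 6 and 1279.9, 1113 and 1411 TPM on day 8 (log2 fold change 0.57, SE 0.28, limma adjusted p = 0.136). Neither gene was called. The call of *Cnn1*, the single gene of the list called lower, was lost without day 6 replicate 3 (-1.32), day 8 replicate 2 (-1.38) or day 8 replicate 3 (-1.55), and with only the compared groups or only wild-type libraries in the fit.

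Genes of connective tissue matrix rose broadly. Of 19 listed genes of interstitial matrix and mesenchyme, 14 were called higher (73.7%) and 0 lower, with a median of 1.72. *Postn* (periostin), a matrix protein gene of valves and mesenchyme, was at 1.19 and 0.572 TPM on day 6 and 35.4, 397 and 60.1 TPM on day 8. Replicate 2 stood far above the other two, which were themselves far above day 6. *Postn* rose by 5.69 on the log2 scale (SE 0.72, limma adjusted p = 1.27e-05). *Col3a1*, the type III collagen gene, showed the same split at 4.67 and 2.52 TPM on day 6 and 30.3, 549 and 49.7 TPM on day 8. It rose by 4.42 on the log2 scale (SE 0.83, limma adjusted p = 0.000456). *Col1a1* and *Col1a2* encode the chains of type I collagen. *Col1a1* was at 24.4 and 10.5 TPM on day 6 and 197, 488 and 192 TPM on day 8. It rose by 3.96 on the log2 scale (SE 0.47, limma adjusted p = 7.75e-06). *Col1a2* was at 5.13 and 5.29 TPM on day 6 and 57.4, 216 and 66.3 TPM on day 8. It rose by 3.93 on the log2 scale (SE 0.55, limma adjusted p = 2.99e-05). *Lum* (lumican), a proteoglycan gene listed at 0 on days 0 and 4, was at 0.338 and 0.0539 TPM on day 6 and 2.43, 29.3 and 2.02 TPM on day 8. It rose by 2.52 on the log2 scale (SE 0.51, limma adjusted p = 0.000957). *Igfbp5*, an IGF-binding protein gene outside the list and named for the size of its rise, was at 8.18 and 2.86 TPM on day 6 and 101, 295 and 102 TPM on day 8. It rose by 4.62 on the log2 scale (SE 0.64, limma adjusted p = 2.6e-05). *Fn1* (fibronectin), which the streak already expresses, overlapped at 457 and 353 TPM on day 6 and 399.5, 724 and 254 TPM on day 8 (log2 fold change 0.06, SE 0.48, limma adjusted p = 0.957). *Bgn* (biglycan), at 3.73 and 2.51 TPM on day 6 and 3.79, 7.38 and 10.9 TPM on day 8, was under the size for a call (log2 fold change 0.94, SE 0.34, limma adjusted p = 0.0432).

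Among the genes of the epithelial-mesenchymal transition, by which streak cells leave their epithelium, 7 of 12 were called higher and 1 lower (58.3% higher and 8.33% lower, median 1.18). *Snai2* (Slug), a zinc finger repressor gene, was at 3.77 and 0.971 TPM on day 6 and 21.7, 67.3 and 42.9 TPM on day 8. It rose by 3.74 on the log2 scale (SE 0.54, limma adjusted p = 3.79e-05). *Twist2*, a bHLH gene of mesenchyme, was at 13 and 3.69 TPM on day 6 and 42.5, 108 and 48.6 TPM on day 8. It rose by 2.93 on the log2 scale (SE 0.51, limma adjusted p = 0.000218), and the homeobox gene *Prrx2* rose by 2.19 on the log2 scale (SE 0.4, limma adjusted p = 0.000354). *Prrx1*, its relative, rose by 1.55 on the log2 scale (SE 0.57, limma adjusted p = 0.0458). *Twist1*, *Zeb1* and *Vim* (vimentin) were also called higher. *Cdh1* (E-cadherin), the adhesion gene of epithelia, was the gene called lower. By contrast *Snai1*, the streak's own repressor gene, *Zeb2*, *Cdh2* (N-cadherin) and *Cdh11* gave no call. *Cdh2* was at 87.3 and 85.2 TPM on day 6 and 75.5, 65.3 and 43.5 TPM on day 8 (log2 fold change -0.52, SE 0.47, limma adjusted p = 0.458). *Cdh11* was at 43 and 27.6 TPM on day 6 and 33.4, 72.8 and 25.2 TPM on day 8 (log2 fold change 0.19, SE 0.6, limma adjusted p = 0.865). Matrix genes called higher numbered 4 with only the compared groups in the fit, and transition genes 2 with only the compared groups in the fit, 4 without day 6 replicate 2 and 3 without day 6 replicate 3 or day 8 replicate 2. The call of *Prrx1* was lost without day 6 replicate 2 (1.8), day 6 replicate 3 (1.29), day 8 replicate 1 (1.48) or day 8 replicate 2 (1.22). Transition genes called lower numbered 0 with only the compared groups in the fit or without day 6 replicate 3 or day 8 replicate 3.

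Genes of proteins that the visceral endoderm secretes rose in part. Of the 24 genes written, 18 were listed, of which 9 were called higher and 0 lower (50% higher), with a median of 1.62; *Alb*, *Apoc3*, *Ambp*, *Fga*, *Fgg* and *Vtn* were not listed. *Rbp4*, the retinol carrier gene, was at 8.78 and 33.8 TPM on day 6 and 123, 195 and 143 TPM on day 8. Day 6 replicate 2 held far less than replicate 3, as it did for most genes of this list, and all 3 day 8 libraries lay above both. *Rbp4* rose by 3.04 on the log2 scale (SE 0.66, limma adjusted p = 0.00154). *Ttr* (transthyretin), the thyroxine carrier gene, was at 3.86 and 30.4 TPM on day 6 and 114, 104 and 64.5 TPM on day 8. It rose by 2.9 on the log2 scale (SE 0.96, limma adjusted p = 0.0268). *Apoc2*, an activator of lipoprotein lipase, was at 0.317 and 4.46 TPM on day 6 and 29.8, 40.7 and 17.9 TPM on day 8. It rose by 3.43 on the log2 scale (SE 0.71, limma adjusted p = 0.00104). In both of these genes day 6 replicate 3 lay between day 6 replicate 2 and the day 8 libraries. *Apom*, a carrier of lipids on HDL, was at 1.09 and 7.41 TPM on day 6 and 24.3, 29.5 and 17 TPM on day 8. It rose by 2.52 on the log2 scale (SE 0.77, limma adjusted p = 0.0179). *Apob*, the structural protein gene of lipoproteins, was at 1.28 and 6.96 TPM on day 6 and 15.7, 22 and 9.76 TPM on day 8. It rose by 1.92 on the log2 scale (SE 0.6, limma adjusted p = 0.0199). *Apoe*, which stem cells also express, was at 338 and 530.5 TPM on day 6 and 1021, 1132 and 1272 TPM on day 8. It rose by 1.42 on the log2 scale (SE 0.34, limma adjusted p = 0.00327).

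Coagulation genes of the list lay under 6 TPM in all 5 libraries. *Fgb* (fibrinogen beta) was at 0.0982 and 0.647 TPM on day 6 and 2.59, 3.5 and 3.56 TPM on day 8. It rose by 1.64 on the log2 scale (SE 0.33, limma adjusted p = 0.00092). *F10* (coagulation factor X) was at 0.48 and 0.356 TPM on day 6 and 1.49, 5.44 and 3.28 TPM on day 8. It rose by 1.53 on the log2 scale (SE 0.43, limma adjusted p = 0.0102). *F2* (prothrombin) was at 0.295 and 1.54 TPM on day 6 and 4.51, 1.91 and 3.62 TPM on day 8. It rose by 1.21 on the log2 scale (SE 0.43, limma adjusted p = 0.0396). *Afp* (alpha-fetoprotein), a marker of visceral endoderm, did not pass. At 4.65 and 51.4 TPM on day 6 and 129, 20.4 and 49.2 TPM on day 8 its groups overlapped and the day 6 libraries lay far apart (log2 fold change 1.59, SE 1.1, limma adjusted p = 0.309). The apolipoprotein genes *Apoa1*, *Apoa2* and *Apoa4* were not called. *Apoa1* was at 1.6 and 15.7 TPM on day 6 and 37.3, 17.6 and 19.5 TPM on day 8 (log2 fold change 1.89, SE 0.81, limma adjusted p = 0.0883). *Apoa2* was at 0.917 and 6.57 TPM on day 6 and 21.3, 5.86 and 10.3 TPM on day 8 (log2 fold change 1.66, SE 0.8, limma adjusted p = 0.132). *Apoa4* was at 0.513 and 4.43 TPM on day 6 and 5.81, 2.33 and 2.57 TPM on day 8 (log2 fold change 0.59, SE 0.6, limma adjusted p = 0.513). *Spink1*, a protease inhibitor gene, was higher in each day 8 library at 34 and 63.8 TPM on day 6 and 252, 199 and 392 TPM on day 8 without a call (log2 fold change 2.51, SE 1.08, limma adjusted p = 0.0895). *Mttp*, *Trf*, *Spp2* and *Ahsg* were not called either. The count of 9 became 4 with only the compared groups in the fit, 1 without day 6 replicate 2 and 5 without day 8 replicate 2. Calls were lost, with log2 fold changes in brackets, without day 6 replicate 2 for *Apoc2* (2.41), *Rbp4* (2.12), *Ttr* (1.56), *Apom* (1.51), *Apob* (1.01), *F10* (1.59), *Apoe* (1.1) and *F2* (0.72), without day 6 replicate 3 for *F10* (1.47), without day 8 replicate 1 for *Ttr* (2.75) and *F2* (1.01), without day 8 replicate 2 for *Ttr* (2.81), *Apom* (2.35), *Apob* (1.66) and *F10* (1.2), and without day 8 replicate 3 for *F2* (1.14).

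The promoters of *Apoc2* and *Fgb* are shown as examples of secreted-protein genes that rose from low day 6 levels. Other called genes of that list are not shown, so this pair does not stand for the list. The same RefSeq window of 300 bases on GRCm38.p6 was used. Capitals mark GTTAAT, a half-site of the motif of the HNF1 factors, searched on both strands.
Apoc2, chr7:19677892-19678191, minus strand: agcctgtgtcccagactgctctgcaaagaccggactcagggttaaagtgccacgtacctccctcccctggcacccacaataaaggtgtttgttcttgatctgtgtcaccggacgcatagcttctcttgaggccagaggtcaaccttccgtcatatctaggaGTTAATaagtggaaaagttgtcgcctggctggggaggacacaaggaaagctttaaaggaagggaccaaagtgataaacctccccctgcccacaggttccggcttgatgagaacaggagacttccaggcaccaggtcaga
Fgb, chr3:83049814-83050113, minus strand: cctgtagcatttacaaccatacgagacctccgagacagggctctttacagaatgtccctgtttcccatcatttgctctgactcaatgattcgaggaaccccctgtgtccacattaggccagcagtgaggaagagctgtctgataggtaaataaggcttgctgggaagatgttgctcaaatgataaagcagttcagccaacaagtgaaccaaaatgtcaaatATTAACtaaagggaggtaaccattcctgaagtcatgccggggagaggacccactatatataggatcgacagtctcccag
The *Apoc2* window held GTTAAT on its own strand and the *Fgb* window on the opposite strand, a sequence found in 7.1% of all 32851 windows on either strand. Neither held CAAAGTCCA, a form of the HNF4 motif (0.47% of windows), and no conclusion about the factors follows from these letters.

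Of 12 listed regulators of extra-embryonic endoderm, 2 were called higher (16.7%, against 6.53% of all genes) and 0 lower (median 0.79). *Hnf4a*, the nuclear receptor gene that drives the secretory programme, was at 2.4 and 1.59 TPM on day 6 and 8.4, 11.4 and 11 TPM on day 8, with all day 8 values above day 6. It rose by 1.92 on the log2 scale (SE 0.54, limma adjusted p = 0.0102). *Foxa1*, a forkhead gene of endoderm, was at 0.906 and 1.33 TPM on day 6 and 3.8, 3.42 and 3.31 TPM on day 8. It rose by 1.1 on the log2 scale (SE 0.29, limma adjusted p = 0.0079). *Sox17* was at 25.2 and 40.9 TPM on day 6 and 48.3, 35.7 and 43.1 TPM on day 8 (log2 fold change 0.38, SE 0.92, limma adjusted p = 0.815). *Foxa2* was at 7.9 and 13.5 TPM on day 6 and 9.63, 7.15 and 11.3 TPM on day 8 (log2 fold change -0.15, SE 0.57, limma adjusted p = 0.89). Both genes overlapped between the days. *Dab2*, an endocytic adaptor gene, was higher in each day 8 library at 11 and 33.6 TPM on day 6 and 70.7, 79.4 and 52.2 TPM on day 8 without a call (log2 fold change 1.73, SE 0.98, limma adjusted p = 0.207). *Pdgfra*, the receptor gene of primitive endoderm that mesoderm also carries, was at 21.5 and 25.2 TPM on day 6 and 34.6, 52.4 and 37.1 TPM on day 8 (log2 fold change 0.78, SE 0.74, limma adjusted p = 0.478). *Sox7*, *Foxa3*, *Gata4* and *Gata6* were not called. Regulators called higher numbered 1 with a minimum of 5 TPM or without day 6 replicate 2 or day 6 replicate 3 and 0 with a pseudocount of 0.1 TPM. The calls were lost without day 6 replicate 2 for *Foxa1* (0.95), and without day 6 replicate 3 for *Hnf4a* (1.72).

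Of 9 genes written for the uptake machinery of the visceral endoderm, 6 were listed, with 0 called higher and 1 lower. Their median was 0.44, but -0.26 without day 6 replicate 2 and 1.13 without day 6 replicate 3. With the replicate number as a block it was -0.05. *Cdhr2*, *Cdhr5* and *Slc2a2* were not listed. *Pdzk1*, a scaffold gene of the brush border, was at 11.3 and 13.6 TPM on day 6 and 7.54, 1.99 and 3.6 TPM on day 8. It fell by 1.45 on the log2 scale (SE 0.48, limma adjusted p = 0.0261). *Lrp2* (megalin) at 5.48 and 10.3 TPM on day 6 and 9.05, 5.52 and 6.91 TPM on day 8, the uptake receptor gene, overlapped between the days (log2 fold change -0.09, SE 0.53, limma adjusted p = 0.937), and the adaptor gene *Dab2* was given with the regulators. Whether this list differs from the secreted proteins was not tested. The call of *Pdzk1* was lost without day 6 replicate 2 (-1.57), day 6 replicate 3 (-1.33), day 8 replicate 2 (-1.09) or day 8 replicate 3 (-1.41), and with only the compared groups or only wild-type libraries in the fit.

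Basement membrane genes rose in part. Of 12 listed, 6 were called higher and 0 lower (50% higher, median 1.19). *Nid1* (nidogen), which links laminin to collagen IV, was at 9.5 and 9.33 TPM on day 6 and 42.2, 78.2 and 32 TPM on day 8. It rose by 2.22 on the log2 scale (SE 0.46, limma adjusted p = 0.00114). *Sparc*, an abundant product of parietal endoderm, was at 155 and 235 TPM on day 6 and 555, 751 and 677 TPM on day 8. It rose by 1.78 on the log2 scale (SE 0.57, limma adjusted p = 0.0223); *Plat*, the tissue plasminogen activator gene, rose by 1.51 on the log2 scale (SE 0.47, limma adjusted p = 0.0187), and *Hspg2* (perlecan) was at 30.04 and 35.2 TPM on day 6 and 77, 92.1 and 66.5 TPM on day 8. It rose by 1.23 on the log2 scale (SE 0.24, limma adjusted p = 0.000779). *Lamc1* and *Thbd* were the other calls. The collagen IV gene *Col4a1* was at 59.4 and 115 TPM on day 6 and 228, 213 and 187 TPM on day 8 (log2 fold change 1.32, SE 0.89, limma adjusted p = 0.292). The laminin gene *Lamb1* was at 53.2 and 70.1 TPM on day 6 and 105, 129 and 114 TPM on day 8 (log2 fold change 0.91, SE 0.49, limma adjusted p = 0.18). Both genes were higher in each day 8 library but not called. The count was 2 without day 6 replicate 2 or day 8 replicate 2. Calls were lost without day 6 replicate 2 for *Sparc* (1.48) and *Plat* (1.4), without day 6 replicate 3 for *Sparc* (2.08) and *Plat* (1.62), and without day 8 replicate 2 for *Sparc* (1.68) and *Plat* (1.18).

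In the list of definitive endoderm and gut, 3 of 10 genes were called higher and 1 lower (30% higher and 10% lower, median 0.46). *Pyy*, the gene of the gut hormone peptide YY, was under 1 TPM on day 6 and went to 42.6, 37.6 and 55.1 TPM, with the day 8 libraries close together (log2 fold change 5.21, SE 0.58, limma adjusted p = 4.21e-06). *Nepn* (nephrocan), a midgut marker, rose with overlapping libraries at 0.317 and 1.48 TPM on day 6 and 4.69, 7.46 and 0.956 TPM on day 8 (log2 fold change 1.33, SE 0.35, limma adjusted p = 0.00619). *Trh*, the gene of thyrotropin-releasing hormone, which stem cells express strongly, was at 228 and 291 TPM on day 6 and 32.8, 12.4 and 44.5 TPM on day 8. It fell by 3.24 on the log2 scale (SE 0.47, limma adjusted p = 4e-05). *Cxcr4*, the chemokine receptor gene of definitive endoderm and mesoderm, was lower in each day 8 library at 41.7 and 33.1 TPM on day 6 and 27, 9.53 and 13.6 TPM on day 8 without a call (log2 fold change -1.23, SE 0.56, limma adjusted p = 0.111). *Foxa3*, at 1.66 and 1.8 TPM on day 6 and 2.83, 2.25 and 4.05 TPM on day 8, was not called. Genes called higher numbered 1 with a minimum of 5 TPM or without day 6 replicate 2, and genes called lower 2 with only wild-type libraries in the fit or without day 8 replicate 1. The calls of *Nepn* and *Foxa1* were lost without day 6 replicate 2 for *Nepn* (0.88) and *Foxa1* (0.95), and without day 8 replicate 2 for *Nepn* (0.89).

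Imprinted genes, which are expressed from the copy of a single parent and many of which promote or restrain fetal growth, rose broadly. Of 20 listed, 12 were called higher and 0 lower (60% higher), with a median of 1.39; *Kcnq1ot1* and *Rtl1* were not listed. *Igf2*, the fetal growth factor gene (chromosome 7, mm10, chr7:142650766-142666816), was at 996 and 274 TPM on day 6 and 3241, 5583 and 3197 TPM on day 8, the day 6 libraries differing from each other, and rose by 2.88 on the log2 scale (SE 0.71, limma adjusted p = 0.0041). *H19*, the non-coding RNA gene next to it (chr7:142575529-142578143), was at 298 and 214 TPM on day 6 and 4734, 1757 and 1958 TPM on day 8. Replicate 1 was the highest for *H19*, while replicate 2 was the highest for *Igf2*. *H19* rose by 3.32 on the log2 scale (SE 1.11, limma adjusted p = 0.0294). *Plagl1* (Zac1), a zinc finger gene, was at 3.98 and 5.17 TPM on day 6 and 31.2, 184 and 25.7 TPM on day 8, again with replicate 2 far above the others, and rose by 3.29 on the log2 scale (SE 0.68, limma adjusted p = 0.00105). *Dlk1*, a non-canonical Notch ligand gene, rose by 3.16 on the log2 scale (SE 0.53, limma adjusted p = 0.00016) from 48.4 and 16.6 TPM on day 6 to 149, 483 and 253 TPM on day 8. *Phlda2* was at 332 and 229 TPM on day 6 and 595, 447 and 390.2 TPM on day 8 (log2 fold change 0.77, SE 0.48, limma adjusted p = 0.257). The non-coding *Rian* was at 389 and 443 TPM on day 6 and 757, 917 and 573 TPM on day 8 (log2 fold change 0.82, SE 0.27, limma adjusted p = 0.0263). Both genes were higher in each day 8 library without a call. Imprinted genes called higher numbered 4 with only the compared groups in the fit and 7 without day 6 replicate 3. Calls were lost without day 6 replicate 2 for *H19* (3.56), without day 6 replicate 3 for *Igf2* (1.96) and *H19* (3.09), and without day 8 replicate 1 for *H19* (2.87).

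Of 31 cell cycle and replication genes, 0 were called higher and 1 lower, a share of 3.23% beside the 2.73% of all genes (median -0.17). With an unadjusted limma p under 0.05, 2 of the 31 were higher and 11 lower, beside 3771 and 2298 of all 16336 genes. *Ccne1* (cyclin E1), which drives entry into S phase, was at 86 and 82.6 TPM on day 6 and 47.2, 32.6 and 35 TPM on day 8. It fell by 1.14 on the log2 scale (SE 0.16, limma adjusted p = 2.6e-05). *Pcna*, the sliding clamp gene, lay lower in each day 8 library at 397 and 394 TPM on day 6 and 312, 232 and 255 TPM on day 8, under the size for a call (log2 fold change -0.58, SE 0.18, limma adjusted p = 0.0166). *Cdk1*, the mitotic kinase gene, was at 441 and 407 TPM on day 6 and 459.6, 529 and 514 TPM on day 8 (log2 fold change 0.24, SE 0.1, limma adjusted p = 0.0707). Of 6 listed inhibitor genes, 3 were called higher and 0 lower (50% higher, median 1.005). *Cdkn1c* (p57), which is imprinted too, was at 86 and 53.6 TPM on day 6 and 344, 541 and 409.8 TPM on day 8. It rose by 2.63 on the log2 scale (SE 0.41, limma adjusted p = 9.64e-05). *Cdkn2c* (p18) was at 0.851 and 0.237 TPM on day 6 and 2.25, 5.28 and 3.41 TPM on day 8. It rose by 1.57 on the log2 scale (SE 0.26, limma adjusted p = 0.00017), and *Cdkn2b* (p15) rose by 1.31 on the log2 scale (SE 0.42, limma adjusted p = 0.0244). *Cdkn1a* (p21) was at 64.2 and 62.7 TPM on day 6 and 77.4, 108 and 132 TPM on day 8 (log2 fold change 0.7, SE 0.29, limma adjusted p = 0.082). *Cdkn1b* (p27) was at 37.2 and 39.4 TPM on day 6 and 47.5, 71.5 and 56.3 TPM on day 8 (log2 fold change 0.58, SE 0.14, limma adjusted p = 0.00423). Both genes were higher in each day 8 library without a call. The count of inhibitor genes was 1 with only the compared groups in the fit. The call of *Cdkn2b* was lost without day 6 replicate 2 (1.24), day 6 replicate 3 (1.39) or day 8 replicate 3 (0.996).

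Hox genes, which give cells their position along the body axis and switch on from the anterior members to the posterior ones, rose with 12 of their 14 calls in paralogue groups 5 to 13. Of 35 listed, 14 were called higher and 1 lower (40% higher and 2.86% lower, median 1.16). By paralogue group, 2 of 11 genes of groups 1 to 4 were called higher and 1 lower (median 0.53), 5 of 11 of groups 5 to 8 were called higher (median 1.26), and 7 of 13 of groups 9 to 13 were called higher (median 1.39); the difference between the groups was not tested. *Hoxa10* was at 3.5 and 0.734 TPM on day 6 and 22, 22.5 and 4.71 TPM on day 8, with replicates 1 and 2 above replicate 3. It rose by 2.38 on the log2 scale (SE 0.72, limma adjusted p = 0.0164). *Hoxa9* was at 5.59 and 0.939 TPM on day 6 and 22.9, 20.7 and 8.97 TPM on day 8. It rose by 2.27 on the log2 scale (SE 0.64, limma adjusted p = 0.0113), and *Hoxa13*, the most posterior gene of its cluster, was at 0.666 and 0.658 TPM on day 6 and 9.1, 8.24 and 3.08 TPM on day 8. It rose by 2.13 on the log2 scale (SE 0.53, limma adjusted p = 0.00497). *Hoxb1*, the earliest Hox gene of the hindbrain and streak, was at 21.6 and 17.3 TPM on day 6 and 2.82, 1.91 and 3.46 TPM on day 8. It fell by 2.47 on the log2 scale (SE 0.45, limma adjusted p = 0.000356). *Hoxb2* was at 17.3 and 11 TPM on day 6 and 18.4, 18 and 24 TPM on day 8 (log2 fold change 0.5, SE 0.4, limma adjusted p = 0.392). *Hoxd9* was at 16.3 and 6.65 TPM on day 6 and 33.6, 26.6 and 25.7 TPM on day 8 (log2 fold change 1.36, SE 0.54, limma adjusted p = 0.0654). Both genes were higher in each day 8 library without a call. Day 6 replicate 2 held more Hox transcript than replicate 3: genes of groups 9 to 13 summed to 43.6 and 13.7 TPM on day 6 and 146.6, 131.9 and 62.0 TPM on day 8, and the part of this difference in the calls was not tested. Hox genes called higher numbered 2 with only the compared groups in the fit, 9 with a pseudocount of 0.1 TPM, 1 without day 6 replicate 3, 7 without day 8 replicate 1 and 6 without day 8 replicate 2. Single Hox calls were lost without day 6 replicate 3 for *Hoxa10* (1.69) and *Hoxa9* (1.39), without day 8 replicate 1 for *Hoxa10* (2.05), and without day 8 replicate 2 for *Hoxa10* (2.04).

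Genes of the TGF-beta superfamily were called in both directions. Of 26 listed, 9 were called higher, 5 were called lower and 12 were not called (34.6% higher and 19.2% lower, median 0.91). The 5 called lower were *Nodal*, *Gdf3*, *Tdgf1*, *Lefty1* and *Lefty2*, the ligands, co-receptor and inhibitors of the Nodal branch. *Lefty2* was at 38.6 and 39 TPM on day 6 and 7.06, 2.81 and 1.59 TPM on day 8 and *Lefty1* at 26.7 and 31.2 TPM on day 6 and 4.93, 1.79 and 2.15 TPM on day 8, with replicate 1 the highest of day 8 in both. Among ligands, *Bmp2*, *Bmp5*, *Tgfb1* and *Tgfb2* were called higher; among inhibitors, *Smad6* and *Bambi*; among targets, *Id2* and *Msx2*. The BMP target gene *Id1* was at 218 and 187 TPM on day 6 and 311, 215 and 278 TPM on day 8 (log2 fold change 0.39, SE 0.23, limma adjusted p = 0.22). *Id3* was at 163 and 132 TPM on day 6 and 241, 215 and 236 TPM on day 8 (log2 fold change 0.65, SE 0.32, limma adjusted p = 0.14). Neither gene was called. Without day 6 replicate 3 the count of genes called higher was 3.

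In the list of FGF signalling more genes were called lower than higher. Of 19 listed, 10 were called lower, 2 were called higher and 7 were not called (10.5% higher and 52.6% lower, median -1.11). The ligands *Fgf4*, *Fgf5*, *Fgf8* and *Fgf17* fell; *Fgf17*, a relative of *Fgf8*, was at 13.9 and 12.5 TPM on day 6 and 2.51, 0.656 and 0.923 TPM on day 8. It fell by 2.67 on the log2 scale (SE 0.42, limma adjusted p = 9.64e-05). The negative feedback genes *Spry2*, *Spry4*, *Dusp4* and *Dusp6* and the ERK-responsive factor genes *Etv4* and *Etv5* fell as well. *Fgfr3* was at 3.59 and 2.45 TPM on day 6 and 11.1, 37.5 and 28.1 TPM on day 8. It rose by 2.58 on the log2 scale (SE 0.43, limma adjusted p = 0.000165), and *Fgfr2* also rose. *Fgfr1*, the receptor of epiblast and mesoderm, was at 83.4 and 73.4 TPM on day 6 and 91, 115 and 107 TPM on day 8 (log2 fold change 0.41, SE 0.2, limma adjusted p = 0.146). *Spred1*, a feedback inhibitor gene, overlapped at 33.7 and 32.7 TPM on day 6 and 33.8, 22.1 and 25.9 TPM on day 8 (log2 fold change -0.3, SE 0.21, limma adjusted p = 0.316). With only the compared groups in the fit, 4 genes were called lower and 1 higher.

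In the WNT list, 4 of 25 genes were called lower and 1 higher (4% higher and 16% lower, median -0.5). *Wnt8a*, a streak ligand gene, was at 17 and 23.3 TPM on day 6 and 2.44, 0.161 and 0.597 TPM on day 8. It fell by 3.5 on the log2 scale (SE 0.56, limma adjusted p = 0.000116). *Wnt3a*, the ligand gene of the posterior streak, was at 3.5 and 3.54 TPM on day 6 and 0.47, 0.0538 and 0.0651 TPM on day 8. It fell by 1.94 on the log2 scale (SE 0.46, limma adjusted p = 0.00349), and *Wnt2b* and the target gene *Sp5* were the other falls. *Wnt2*, a ligand gene of heart and lung mesoderm listed at 0 on days 0 and 4, was at 3.23 and 2.07 TPM on day 6 and 4.63, 17.8 and 5.42 TPM on day 8. It rose by 1.29 on the log2 scale (SE 0.42, limma adjusted p = 0.0242). *Axin2*, the general WNT target gene, was lower in each day 8 library at 49.9 and 41.9 TPM on day 6 and 39, 15.4 and 16.7 TPM on day 8, with replicate 1 the highest (log2 fold change -1.04, SE 0.49, limma adjusted p = 0.118). *Tcf7*, a nuclear effector gene, was at 61.1 and 54.8 TPM on day 6 and 49.97, 33 and 40.9 TPM on day 8 (log2 fold change -0.5, SE 0.19, limma adjusted p = 0.056). WNT genes called lower numbered 2 with a minimum of 5 TPM and 7 without day 8 replicate 1. With the replicate number as a block, 3 were called higher and 7 lower. The call of *Wnt2* was lost without day 6 replicate 2 (1.52), day 6 replicate 3 (1.05) or day 8 replicate 2 (0.74), with only wild-type libraries in the fit, and with a pseudocount of 0.1 TPM.

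The retinoic acid list was mixed: 2 of 13 genes were called higher and 1 lower (15.4% higher and 7.69% lower, median 0.15), and *Aldh1a1* and *Aldh1a3* were not listed. *Rarb*, a receptor gene that retinoic acid induces, was at 0.426 and 0.421 TPM on day 6 and 2.46, 6.73 and 4.21 TPM on day 8. It rose by 1.87 on the log2 scale (SE 0.38, limma adjusted p = 0.000958). *Dhrs3*, whose product reduces retinaldehyde, was at 1.81 and 2.54 TPM on day 6 and 3.84, 8.65 and 7.46 TPM on day 8. It rose by 1.22 on the log2 scale (SE 0.33, limma adjusted p = 0.00843), while *Aldh1a2*, the gene of the synthesising enzyme, was at 11.9 and 12.4 TPM on day 6 and 3.78, 2.12 and 4.96 TPM on day 8. It fell by 1.56 on the log2 scale (SE 0.47, limma adjusted p = 0.0154). *Cyp26a1*, the gene of the degrading enzyme, was lower in each day 8 library at 116 and 148 TPM on day 6 and 75.3, 16.2 and 38.7 TPM on day 8 without a call (log2 fold change -1.82, SE 0.75, limma adjusted p = 0.0778). *Crabp1*, a retinoid-binding protein gene, overlapped at 88.9 and 45.8 TPM on day 6 and 71.5, 89.97 and 138 TPM on day 8. The calls were lost without day 6 replicate 2 for *Dhrs3* (1.05) and *Aldh1a2* (-1.59), without day 6 replicate 3 for *Aldh1a2* (-1.54), and without day 8 replicate 2 for *Dhrs3* (1.02) and *Aldh1a2* (-1.3). The count of genes called lower was 0 with only the compared groups in the fit or without day 6 replicate 2, day 6 replicate 3 or day 8 replicate 2 and 2 without day 8 replicate 1.

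In the Hedgehog list 1 of 5 genes was called higher and 0 lower (20% higher, median 0.6), and *Dhh* was not listed. *Ihh*, the ligand gene that visceral endoderm secretes, was at 0.742 and 2.65 TPM on day 6 and 5.37, 5.39 and 6.09 TPM on day 8. It rose by 1.39 on the log2 scale (SE 0.42, limma adjusted p = 0.017), a call that was lost without day 6 replicate 2 (0.85) and with only the compared groups or only wild-type libraries in the fit. The receptor and target gene *Ptch1* was higher in each day 8 library at 17 and 16.9 TPM on day 6 and 27, 27.5 and 24 TPM on day 8 (log2 fold change 0.6, SE 0.2, limma adjusted p = 0.0316). *Gli1* overlapped at 3.59 and 3.97 TPM on day 6 and 3.16, 4.69 and 2.88 TPM on day 8. Without day 8 replicate 3, 2 Hedgehog genes were called higher. In the Notch list 2 of 12 genes were called higher and 3 lower (16.7% higher and 25% lower, median 0.26); *Heyl* was not listed. *Dll3*, a ligand gene of streak and somites, was at 22.8 and 26.3 TPM on day 6 and 3.43, 0.947 and 3.77 TPM on day 8. It fell by 2.88 on the log2 scale (SE 0.5, limma adjusted p = 0.000225). *Dll1*, which acts in the same tissues, was at 13.4 and 16.7 TPM on day 6 and 1.95, 1.17 and 1.43 TPM on day 8. It fell by 2.68 on the log2 scale (SE 0.56, limma adjusted p = 0.00122). *Jag1*, another ligand gene, fell by 1.06 on the log2 scale (SE 0.26, limma adjusted p = 0.00458). *Hey2*, a target gene of the ventricle and arteries, was at 3.96 and 1.91 TPM on day 6 and 15.7, 14.1 and 15.9 TPM on day 8. It rose by 2.09 on the log2 scale (SE 0.42, limma adjusted p = 0.00078), and *Dll4*, the arterial ligand gene, was also called higher. *Hes1* was at 71 and 62.6 TPM on day 6 and 72.2, 35.8 and 41.8 TPM on day 8. *Notch3* was at 31.9 and 25 TPM on day 6 and 49, 34.9 and 30.7 TPM on day 8. Both genes overlapped between the days, without a call. The Notch count of 2 was 1 after median-ratio rescaling, with a minimum of 5 TPM, with only the compared groups in the fit or without day 6 replicate 2, day 6 replicate 3, day 8 replicate 1 or day 8 replicate 2. The call of *Jag1* was lost without day 6 replicate 3 (-1.01) or day 8 replicate 3 (-0.91).

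Most metabolic genes were not called. In the list of glycolysis and hypoxia response, 5 of 23 genes were called higher (21.7%, against 6.53% of all genes) and 0 lower (median 0.31). *Vegfa*, the vessel growth factor gene, was at 35.9 and 36.3 TPM on day 6 and 105, 98.5 and 102 TPM on day 8. It rose by 1.47 on the log2 scale (SE 0.35, limma adjusted p = 0.00312). *Slc2a1*, a glucose transporter gene, was at 279.6 and 296 TPM on day 6 and 684, 679 and 595 TPM on day 8. It rose by 1.18 on the log2 scale (SE 0.22, limma adjusted p = 0.000398), and the peptide gene *Adm* (adrenomedullin) rose by 2.07 on the log2 scale (SE 0.55, limma adjusted p = 0.00754). *Ndrg1*, a stress-responsive gene, rose by 1.26 on the log2 scale (SE 0.39, limma adjusted p = 0.0199). *Hk1* was the enzyme gene called. *Gapdh* was at 6009.7 and 5473 TPM on day 6 and 5082, 4753 and 4139.6 TPM on day 8 (log2 fold change -0.31, SE 0.11, limma adjusted p = 0.049). *Ldha* was at 2724 and 2744 TPM on day 6 and 2776, 1860.5 and 2057 TPM on day 8 (log2 fold change -0.31, SE 0.23, limma adjusted p = 0.334). Neither gene was called. In cholesterol and fatty acid synthesis 2 of 26 genes were called higher, a share of 7.69% beside the 6.53% of all genes, and 0 lower (median 0.62). At an unadjusted limma p under 0.05, 18 of the 26 were higher and 0 lower, beside 3771 and 2298 of all 16336 genes. *Sc5d*, a late enzyme gene of the pathway, rose by 1.18 on the log2 scale (SE 0.23, limma adjusted p = 0.000571) from 23.4 and 22.3 TPM on day 6 to 41.1, 63.4 and 57.3 TPM on day 8, and *Scd1*, the stearoyl-CoA desaturase gene, rose by 1.1 on the log2 scale (SE 0.22, limma adjusted p = 0.000726). *Scd2* was at 297 and 278 TPM on day 6 and 507, 654 and 475 TPM on day 8 (log2 fold change 0.91, SE 0.27, limma adjusted p = 0.0144). *Fdps* was at 268 and 248 TPM on day 6 and 373, 483 and 469 TPM on day 8 (log2 fold change 0.76, SE 0.18, limma adjusted p = 0.00364). Both genes were higher in each day 8 library and under the size for a call. Glycolysis and hypoxia genes called higher numbered 3 with only the compared groups in the fit and 2 without day 6 replicate 2, cholesterol genes 4 without day 8 replicate 1. Calls were lost without day 6 replicate 2 for *Adm* (2.09) and *Ndrg1* (1.1), without day 6 replicate 3 for *Adm* (2.06) and *Ndrg1* (1.42), and without day 8 replicate 2 for *Ndrg1* (1.19).

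In the list of ATF4 targets, which respond to amino acid shortage, 1 of 8 genes was called higher and 0 lower (12.5% higher, median -0.22): *Ddit3* (CHOP) was at 11.9 and 13.2 TPM on day 6 and 33.6, 34 and 25.6 TPM on day 8. It rose by 1.23 on the log2 scale (SE 0.36, limma adjusted p = 0.0125). *Psat1* at 184 and 177 TPM on day 6 and 139.6, 110.2 and 151 TPM on day 8 and *Phgdh* at 139.96 and 149 TPM on day 6 and 154, 107 and 161 TPM on day 8, genes of serine synthesis, were not called. Among immediate-early genes, which handling and serum induce within minutes, 1 of 12 was called higher (8.33%, near the 6.53% of all genes) and 1 lower. *Jun* was at 18.7 and 23.3 TPM on day 6 and 49.4, 53 and 38.6 TPM on day 8. It rose by 1.12 on the log2 scale (SE 0.31, limma adjusted p = 0.0106), and *Egr2*, which is also a hindbrain gene, was at 1.4 and 2.11 TPM on day 6 and 0.0983, 0.215 and 0.445 TPM on day 8. It fell by 1.13 on the log2 scale (SE 0.27, limma adjusted p = 0.00324). *Btg2* was at 33 and 39.9 TPM on day 6 and 36.6, 43.6 and 55.8 TPM on day 8. *Ier2* was at 76.3 and 81.1 TPM on day 6 and 59.8, 60.3 and 56.7 TPM on day 8. Neither gene was called. *Fosb* was not listed. The calls were lost without day 6 replicate 2 for *Ddit3* (1.16) and *Jun* (0.97), and without day 6 replicate 3 for *Ddit3* (1.3) and *Egr2* (-0.94). ATF4 targets called lower numbered 1 after median-ratio rescaling or without day 8 replicate 1, and immediate-early genes 0 with a minimum of 5 TPM or without day 6 replicate 3 and 2 without day 8 replicate 2.

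Of 24 neural and neural crest genes, 15 were listed and 0 were called in either direction (median -0.41). At an unadjusted limma p under 0.05, 1 was higher and 5 lower, beside 3771 and 2298 of all 16336 genes. *Nes* (nestin), a gene of neural progenitors and other immature cells, was at 28.6 and 37.1 TPM on day 6 and 24.9, 12.6 and 11.4 TPM on day 8 (log2 fold change -1.04, SE 0.51, limma adjusted p = 0.141). *Stmn2*, a neuronal gene that stem cells also express, was at 57.4 and 90.8 TPM on day 6 and 35.6, 23 and 43.6 TPM on day 8 (log2 fold change -1.11, SE 0.43, limma adjusted p = 0.0597). Neural genes called lower numbered 1 with a minimum of 5 TPM, with only wild-type libraries in the fit or without day 8 replicate 1 or day 8 replicate 3 and 3 with a pseudocount of 0.1 TPM. Of 15 listed keratin and junction genes, 2 were called higher and 0 lower (13.3% higher, median 0.51): *Krt18*, a simple keratin gene, was at 289.8 and 224 TPM on day 6 and 628, 650.3 and 703 TPM on day 8. It rose by 1.37 on the log2 scale (SE 0.49, limma adjusted p = 0.0418), and *Krt7* was at 2.05 and 1.76 TPM on day 6 and 4.17, 6.16 and 5.56 TPM on day 8. It rose by 1.11 on the log2 scale (SE 0.4, limma adjusted p = 0.0424). *Krt8* was at 459.5 and 334 TPM on day 6 and 928, 756 and 800.1 TPM on day 8 (log2 fold change 1.07, SE 0.55, limma adjusted p = 0.159). *Krt19* was at 63.6 and 65.6 TPM on day 6 and 202, 152 and 142 TPM on day 8 (log2 fold change 1.32, SE 0.68, limma adjusted p = 0.156). Both genes were higher in each day 8 library without a call. Keratin and junction genes called higher numbered 1 after median-ratio rescaling, 4 with only the compared groups in the fit and 0 with only wild-type libraries in the fit, with a pseudocount of 0.1 TPM or without day 6 replicate 2, day 6 replicate 3, day 8 replicate 2 or day 8 replicate 3. Keratin calls were lost without day 6 replicate 2 for *Krt18* (1.56) and *Krt7* (1.18), without day 6 replicate 3 for *Krt18* (1.18) and *Krt7* (1.03), without day 8 replicate 1 for *Krt18* (1.41), without day 8 replicate 2 for *Krt18* (1.38) and *Krt7* (1.01), and without day 8 replicate 3 for *Krt18* (1.32) and *Krt7* (1.07). Genes of that list called lower numbered 1 with a pseudocount of 0.1 TPM or without day 8 replicate 1.

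Of 9 trophoblast genes, 4 were listed, 2 of them called higher and 0 lower (50% higher, median 0.64). *Plac1*, a placental gene, was at 12 and 2.56 TPM on day 6 and 34.7, 61.4 and 24.6 TPM on day 8. It rose by 2.5 on the log2 scale (SE 0.63, limma adjusted p = 0.00533), and *Gata3*, which other tissues share, was at 4.43 and 2.51 TPM on day 6 and 8.35, 9.14 and 9.16 TPM on day 8. It rose by 1.18 on the log2 scale (SE 0.43, limma adjusted p = 0.0477). The defining trophoblast genes *Elf5*, *Tpbpa*, *Prl3d1*, *Prl2c2* and *Gcm1* were not listed, *Ascl2* was at 1.27 and 1.33 TPM on day 6 and 1.9997, 1.05 and 1.48 TPM on day 8, and *Tfap2c* at 10.6 and 11 TPM on day 6 and 9.95, 5.88 and 4.57 TPM on day 8. Of 7 germ cell genes, 1 was called higher and 2 lower (14.3% higher and 28.6% lower, median -0.71). *Ddx4* (vasa) was at 5.03 and 3.73 TPM on day 6 and 1.13, 2.01 and 1.52 TPM on day 8. It fell by 1.08 on the log2 scale (SE 0.23, limma adjusted p = 0.00135), *Dppa3* fell as given with the naive genes, and *Kit*, a receptor gene that blood progenitors and other cells share, was at 8.57 and 9.48 TPM on day 6 and 26.5, 26.3 and 15.3 TPM on day 8. It rose by 1.2 on the log2 scale (SE 0.4, limma adjusted p = 0.0275). *Prdm1*, a regulator of germ cell fate, overlapped at 3.71 and 3.26 TPM on day 6 and 4.4, 1.89 and 1.76 TPM on day 8. Trophoblast genes called higher numbered 1 after median-ratio rescaling or without day 6 replicate 2, day 8 replicate 1, day 8 replicate 2 or day 8 replicate 3 and 0 with only the compared groups in the fit, with a pseudocount of 0.1 TPM or without day 6 replicate 3. In the trophoblast and germ cell lists, calls were lost without day 6 replicate 2 for *Gata3* (1.49), *Ddx4* (-0.91), *Dppa3* (-1.39) and *Kit* (1.14), without day 6 replicate 3 for *Plac1* (1.57), *Gata3* (0.86), *Dppa3* (-1.28) and *Kit* (1.27), without day 8 replicate 1 for *Gata3* (1.22), *Ddx4* (-0.96), *Dppa3* (-1.23) and *Kit* (1.07), without day 8 replicate 2 for *Gata3* (1.16) and *Kit* (1.08), and without day 8 replicate 3 for *Gata3* (1.16) and *Dppa3* (-1.21).

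**Figure D3:**
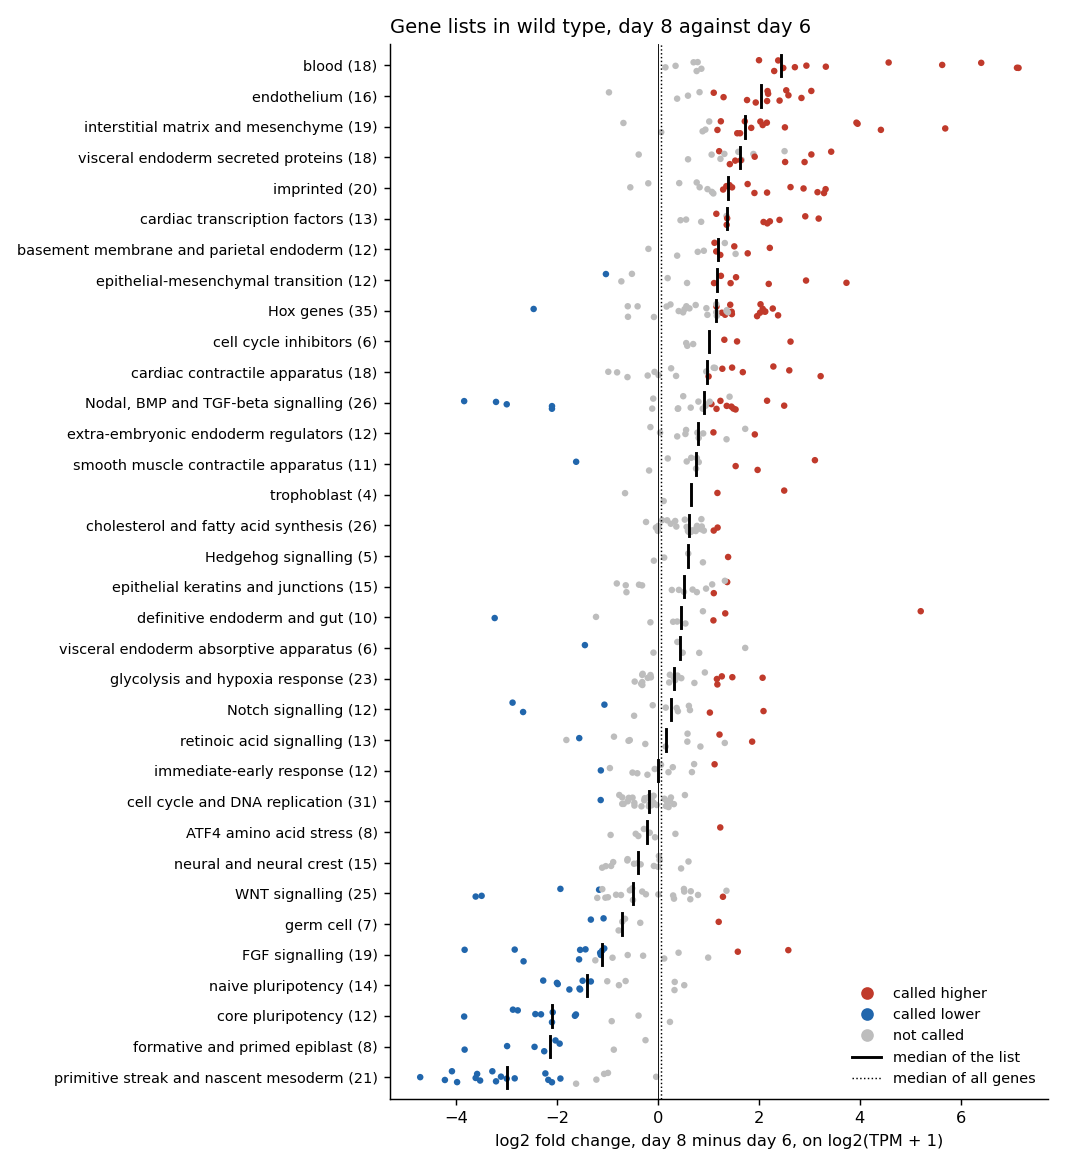
Log2 fold changes, day 8 minus day 6 of wild type, of the listed genes in each of 34 lists with at least 4 listed genes; each point is a gene, coloured by its call, and the dotted line marks the median of all genes. The streak, core and formative lists lie to the left, and the blood, endothelium and matrix lists to the right.

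Genes that crossed 1 TPM, the limit at which the study kept a transcript, were counted here as switched on or off. By that rule, 165 genes (1.01%) switched on, being called higher, under 1 TPM in both day 6 libraries and at least 1 TPM in all 3 of day 8. Of these, 147 were protein coding, 16 were non-coding RNA genes and 2 could not be placed in the annotation. In 133 of the 165 the mean was below 1 TPM on days 0, 4 and 6 alike, and in 32 it had been at 1 TPM or more on day 0 or day 4. Most switched-on genes stayed low, with 47 of them reaching a mean of 5 TPM on day 8. Among the 10 with the highest day 8 means were *Hba-x*, *Hbb-y*, *Hbb-bs*, *Pyy*, *Tie1*, *Crispld2*, *Gfi1b*, *Alas2* and *Lum*: 5 genes of red cells, with a gut hormone, an endothelial receptor and 2 secreted proteins. *Crispld2*, which encodes a secreted protein of mesenchyme, was at 0.72 and 0.507 TPM on day 6 and 6.37, 27 and 6.53 TPM on day 8, replicate 2 standing apart, and rose by 2.85 on the log2 scale (SE 0.43, limma adjusted p = 6.1e-05).

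In the other direction 92 genes (0.563%) switched off: 62 protein coding, 21 non-coding RNA genes, 8 pseudogenes and 1 not placed. Of the 92, 10 had a mean of at least 5 TPM on day 6. Their history was mixed, with 55 at a mean of 1 TPM or more on day 0 and 37 below it. *Pcdh8*, a protocadherin gene of paraxial mesoderm, was such a gene of day 6, at 0.25, 0.94 and 0.841 TPM on day 4 and then at 7.02 and 7.39 TPM on day 6 and 0.404, 0.592 and 0.597 TPM on day 8 (log2 fold change -2.42, SE 0.29, limma adjusted p = 7.75e-06). *Rxrg*, a retinoid X receptor gene, was at 7.96 and 6.87 TPM on day 6 and 0.994, 0.215 and 0.847 TPM on day 8 (log2 fold change -2.35, SE 0.29, limma adjusted p = 1.22e-05). *Cnpy1* was in contrast a gene of undifferentiated cells, at 42.2, 40.7 and 42 TPM on day 0 and then at 7.51 and 5.32 TPM on day 6 and 0.896, 0.99 and 0.988 TPM on day 8 (log2 fold change -1.91, SE 0.33, limma adjusted p = 0.000243). *Foxd3* and *Nr0b1*, given above, belong to the epiblast and naive lists. *Cabp7*, a calcium-binding protein gene, fell by 1.89 on the log2 scale (SE 0.3, limma adjusted p = 0.000111), and *1700013H16Rik* fell by 2.004 on the log2 scale (SE 0.4, limma adjusted p = 0.000855). The small Cajal body RNA *Scarna10* was at 5.65 and 5.86 TPM on day 6 and 0.371, 0 and 0.847 TPM on day 8 (log2 fold change -2.31, SE 0.68, limma adjusted p = 0.0145). The long non-coding RNA *Gm28625* was at 58.7 and 36.9 TPM on day 6 and 0, 0 and 0 TPM on day 8. The processed pseudogene *Gm44389* was at 37.1 and 28.1 TPM on day 6 and 0, 0 and 0 TPM on day 8. Both genes were listed at 0 in all day 8 libraries, for which no fold is given. *Gm44389* was also listed at 0 in some libraries of days 0 and 4, and its call was lost in turn without each of the 5 libraries. The call of *Scarna10* was lost without day 6 replicate 2 (-2.33), day 6 replicate 3 (-2.29) or day 8 replicate 2 (-2.09). With a stricter rule of at least 2 TPM against under 0.5 TPM, 18 genes switched on and 7 off. Without day 8 replicate 1, which had kept the most of the falling genes, 145 genes switched off.

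Genes that fell in the last step had different histories. Of the 446 called lower, the mean was highest at day 0 for 194 (43.5%), at day 4 for 85 (19.06%) and at day 6 for 167 (37.44%). The first set includes *Nanog* and *Pou5f1*, the second *Otx2* and *Pim2*, and the third *T*, *Eomes* and *Mixl1*. Over all 16336 genes the shares were 32.38%, 13.77% and 16.06%, with 37.79% highest on day 8. A call as lower leaves out day 8 by its direction, so these shares are not on equal terms. Of the 1066 called higher, 1002 (94.0%) had their highest mean on day 8, against 37.79% of all genes. Here the direction of the call leaves out day 6. The step from day 4 to day 6, which shares the day 6 libraries, gave 848 genes called higher (5.19%) and 676 called lower (4.14%) with a median of 0.06. Of the genes called higher in the last step, 166 had also been called higher in the step before and 48 lower; of those called lower, 105 had been called higher before and 113 lower. In the streak list, 18 of 21 genes were called higher from day 4 to day 6 with a median of 3.54, against 16 called lower with a median of -3.000 from day 6 to day 8. Secreted visceral endoderm genes had 9 of 18 called lower and 0 higher in the earlier step, with a median of -1.63, and 9 called higher in the later step. *Rbp4* was at 113, 12.2 and 56.9 TPM on day 4, where replicate 2 was low, before the day 6 and day 8 levels given above, and *Afp* at 255, 20.2 and 76.7 TPM on day 4. Because both steps use the same day 6 libraries, a low or high value in that pair moves the 2 steps in opposite directions.

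**Figure D4:**
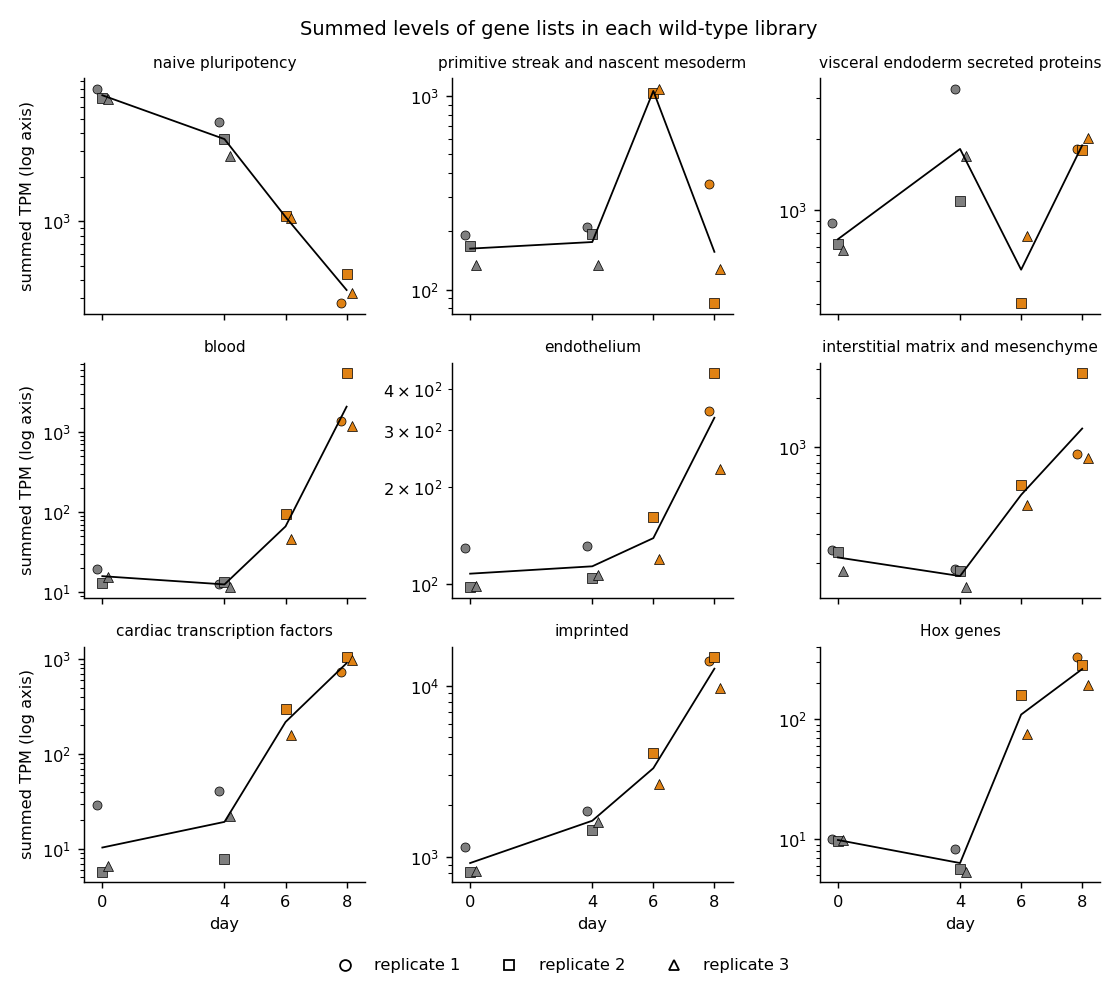
Summed TPM of 9 gene lists in every wild-type library from day 0 to day 8 (x axis, day; y axis, summed TPM on a log scale); points are libraries and lines join the geometric means. The streak list peaks on day 6, the naive list declines throughout, the secreted visceral endoderm list dips on day 6, and the blood, endothelium and matrix lists are highest on day 8.

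The last step of wild type was set against that of the clones dK9.1 and dK9.2, which share no library with it. Averaged over the clones, 746 genes were called higher (4.57%) and 265 lower (1.62%) between days 6 and 8. The clones' mean change had the same sign as that of wild type in 1037 of the 1066 wild-type genes called higher. The same held for 404 of the 446 called lower. The share over all genes was not counted, and a shared sign leaves the size of the change aside. The difference of the steps was tested directly: 27 genes were called with a more positive step in wild type (0.165%) and 27 with a more negative one (0.165%), while 1704 genes had an unadjusted p under 0.05. *Postn* differed most among those called in the positive direction, by 4.16 on the log2 scale (SE 0.88, limma adjusted p = 0.0273). Against the wild-type values given above, *Postn* was at 0.486 and 0.0551 TPM on day 6 and 0.709, 15.3 and 2.51 TPM on day 8 in dK9.1 and 0.587 and 0.39 TPM on day 6 and 0.303, 4.22 and 4.57 TPM on day 8 in dK9.2. *Adamts2*, a procollagen-processing protease gene, was at 2.13 and 0.41 TPM on day 6 and 12.4, 29.3 and 15.8 TPM on day 8 in wild type. In the clones it was at 0.298 and 0.154 TPM on day 6 and 1.35, 6.31 and 0.556 TPM on day 8 in dK9.1 and 0.321 and 0.304 TPM on day 6 and 0.52, 1.71 and 1.14 TPM on day 8 in dK9.2. The difference of the steps was 2.2 on the log2 scale (SE 0.49, limma adjusted p = 0.0401). *Rnd2*, a small GTPase gene, was at 21.3 and 16.7 TPM on day 6 and 73.4, 105 and 114 TPM on day 8 in wild type. In the clones it was at 24.5 and 36 TPM on day 6 and 19.2, 49.5 and 26.1 TPM on day 8 in dK9.1 and 23.3 and 27.1 TPM on day 6 and 16.6, 23.5 and 23.8 TPM on day 8 in dK9.2, which makes a difference of the steps of 2.42 on the log2 scale (SE 0.32, limma adjusted p = 0.000512). In the clones no day 8 library of *Adamts2* reached the lowest of wild type, and for *Rnd2* the wild-type day 8 libraries stood above all others. *Rfx6*, a factor gene of gut endoderm and pancreas, was at 0.338 and 0.755 TPM on day 6 and 4.75, 5.73 and 8.002 TPM on day 8 in wild type. In the clones it was at 0.331 and 0.418 TPM on day 6 and 0.118, 1.1 and 0.689 TPM on day 8 in dK9.1 and 0.343 and 0.466 TPM on day 6 and 0.141, 0.271 and 0.335 TPM on day 8 in dK9.2, and the steps differed by 2.18 on the log2 scale (SE 0.27, limma adjusted p = 0.000288). *Ly6h*, a gene of a GPI-anchored protein, was at 1.11 and 0.96 TPM on day 6 and 9.2, 11.7 and 6.5 TPM on day 8 in wild type. In the clones it was at 1.67 and 3.84 TPM on day 6 and 0.644, 4.72 and 1.33 TPM on day 8 in dK9.1 and 3.22 and 2.68 TPM on day 6 and 0.812, 0.672 and 2.74 TPM on day 8 in dK9.2, which makes a difference of the steps of 2.87 on the log2 scale (SE 0.52, limma adjusted p = 0.00954). Both genes were called higher from day 6 to day 8 in wild type, where the groups did not overlap.

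In the other direction, 2 of the 21 streak genes, *Mesp2* and *Lefty2*, had a called difference of the steps, while 8 of the 21 were called lower in the mean of the clones. *Mesp2* fell in wild type as given above but was at 5.07 and 1.06 TPM on day 6 and 3.3, 1.72 and 4.41 TPM on day 8 in dK9.1 and 2.63 and 2.22 TPM on day 6 and 5.24, 4.0001 and 5.68 TPM on day 8 in dK9.2, so that the steps differed by -2.66 on the log2 scale (SE 0.38, limma adjusted p = 0.00102). *Hoxb1* was at 27.9 and 3.18 TPM on day 6 and 18.5, 7.65 and 7.95 TPM on day 8 in dK9.1 and 9.74 and 15.4 TPM on day 6 and 22.4, 11.8 and 17.6 TPM on day 8 in dK9.2, and its step differed by -2.71 on the log2 scale (SE 0.55, limma adjusted p = 0.0221). *Lefty2* fell in wild type and lay lower on day 8 in the clones too, at 33.7 and 31.7 TPM on day 6 and 9.99, 14.6 and 13.3 TPM on day 8 in dK9.1 and 24.1 and 22.3 TPM on day 6 and 17.4, 8.61 and 11.8 TPM on day 8 in dK9.2; its step differed by -2.11 on the log2 scale (SE 0.39, limma adjusted p = 0.0109). *Acta1*, the skeletal actin gene, was at 26.9 and 32.6 TPM on day 6 and 13.4, 13.3 and 18 TPM on day 8 in wild type, not a call. In the clones it was at 3.05 and 3.51 TPM on day 6 and 10.1, 10.7 and 31.2 TPM on day 8 in dK9.1 and 4.81 and 6.47 TPM on day 6 and 13.1, 20.7 and 56.8 TPM on day 8 in dK9.2, with a difference of -2.91 on the log2 scale (SE 0.64, limma adjusted p = 0.0383). *Lgals3* (galectin 3) was at 23.6 and 12.1 TPM on day 6 and 6.03, 5.15 and 5.86 TPM on day 8 in wild type, where it fell by 1.43 on the log2 scale (SE 0.31, limma adjusted p = 0.00161). In the clones it was at 3.23 and 1.64 TPM on day 6 and 5.76, 4.36 and 5.65 TPM on day 8 in dK9.1 and 4.9 and 4.36 TPM on day 6 and 10.7, 12 and 13.7 TPM on day 8 in dK9.2. Its steps differed by -2.49 on the log2 scale (SE 0.38, limma adjusted p = 0.00214). For *Acta1* and *Lgals3* both wild-type day 6 libraries stood above every clone library of day 6. Fitted with only the groups concerned, 0 genes were called in either direction by limma, so no named gene kept its call. At an unadjusted p under 0.05 there were 1279. Of the 54 genes called in all, 25 were also called without wild-type day 8 replicate 2, and 14 with a pseudocount of 0.1 TPM. Calls also depended on single day 6 libraries, where leaving out 1 leaves a lone sample in its group. For *Lgals3* the wild-type call was lost without day 6 replicate 2 (-0.98).

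**Figure D5:**
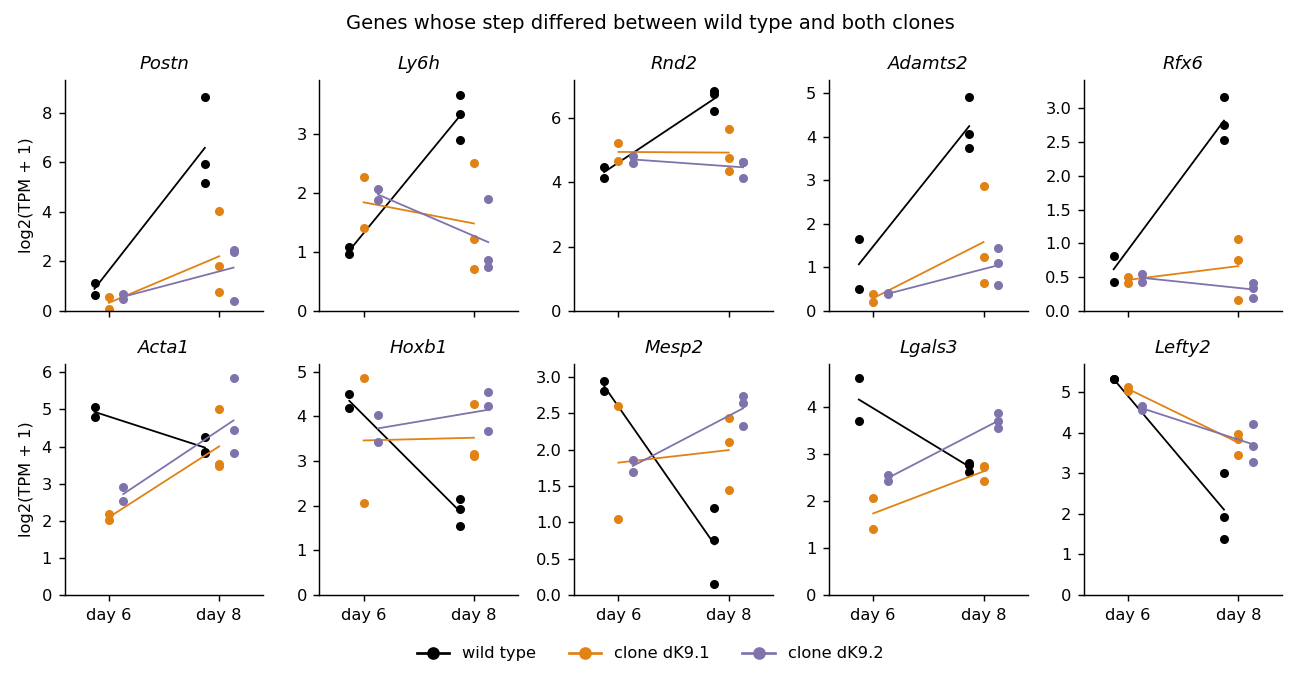
Levels of the 10 named genes whose step from day 6 to day 8 differed between wild type and the mean of both clones, as log2(TPM + 1) in every library; lines join the group means of wild type, dK9.1 and dK9.2. In the upper row wild type rises more than the clones, as for *Postn* and *Rnd2*; in the lower row its mean goes down, without a call for *Acta1*, while the means of the clones go up, stay or go down less, as for *Mesp2* and *Lefty2*.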

How the data were processed

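Stranded poly-A RNA-seq libraries of 33 mouse samples in 12 groups of line and day were analysed, 5 of them wild type at days 6 and 8. Per the methods, the authors used STAR for alignment on mm10 and RSEM for gene abundance, and computed TPM after leaving out libraries that stood apart in a principal component analysis; whether this is why no day 6 replicate 1 was analysed here is not stated, and tool versions are not given in the sources used here. The deposited unit is TPM per gene, with library sums of 994284 to 998266. TPM keep no read depth, so depth is unknown and no counting interval is given. Columns with the authors' DESeq log2 fold changes and false discovery rates between groups were not used. 

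TPM were transformed as log2(TPM + 1) and fitted with limma 3.58.1 (R 4.3.3, empirical Bayes with a mean-variance trend) over all 33 libraries, with Benjamini-Hochberg adjustment over 16336 genes; a call needed an adjusted p under 0.05 and an absolute log2 fold change above 1. Tables and plots were made in Python 3.11.15 (pandas 2.3.3, matplotlib 3.10.9). The fit was tested on simulated data. Of 200 genes changed between days 6 and 8 by 1.5, 2 or 3 on the log2 scale, 177, 189 and 197 were recovered. The simulated noise was independent, with the same spread for a gene in all groups and no replicate effect. Changes were planted only in genes with a mean log2(TPM + 1) above 1. The real day 8 libraries spread more than the day 6 pair. The recovery therefore checks the fit under its own assumptions and does not bear on the calls. No 2 libraries held identical values. The 35 gene lists and the libraries compared were chosen with earlier results of these data known. Named genes were the 10 switched-on and 10 switched-off genes of highest level, the 10 steepest non-overlapping changes of at least 5 TPM in each direction, up to 4 called and 2 uncalled members per list, all members of the naive, secreted visceral endoderm and endoderm regulator lists, and 5 genes in each direction of the comparison with the clones; other members were named to account for a count, after their values were seen. A few genes that this rule selects stand in the counts and are not reported here by name. Alternatives were a pseudocount of 0.1, minimums of 1 or 5 TPM, median-ratio rescaling, fits over fewer libraries, the replicate number as a block, and leaving out each library. Promoter windows and positions came from RefSeq and GENCODE on mm10.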

Additional observations from a re-analysis of the deposited data

Results flagged for a closer look

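For 10 named genes the step from day 6 to day 8 differed between wild type and the mean of both clones, by an interaction contrast in the limma fit over all 33 libraries. The step was more positive in wild type by 4.16 on the log2 scale for *Postn*, by 2.87 for *Ly6h*, by 2.42 for *Rnd2*, by 2.20 for *Adamts2* and by 2.18 for *Rfx6*. The difference was -2.91 for *Acta1*, -2.71 for *Hoxb1*, -2.66 for *Mesp2*, -2.49 for *Lgals3* and -2.11 for *Lefty2*. With only the groups concerned in the fit, 0 genes were called by limma, so all 10 calls were lost, and 1279 had an unadjusted p under 0.05. Of all 54 genes called, 25 were also called without wild-type day 8 replicate 2, and 14 with a pseudocount of 0.1 TPM.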

How the results depend on the processing

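Of the 133 named genes called between days 6 and 8, 63 kept their call under every alternative run and 0 changed direction; 20 of the 83 not called were called under some alternative. Calls were lost for 54 with only the compared groups in the fit, for 17 with only wild-type libraries and for 33 without day 6 replicate 2. With only the compared groups, 472 genes were called higher and 258 lower, 64 switched on, the earlier step had 447 lower calls, and the step against the clones had 0 in each direction. With a pseudocount of 0.1, 755 genes were called lower, 152 switched off, and the step against the clones had 7 and 9 calls (more positive and more negative in wild type); with a minimum of 5 TPM these were 9 and 8, with 48 genes switched on and 10 off. Under the stricter switch rule 18 genes switched on and 7 off. Leaving out 1 library gave 725 to 1236 genes called higher, 295 to 547 lower, 134 to 238 switched on and 71 to 145 switched off; for the step from day 4 to day 6, 566 to 871 higher and 306 to 776 lower; and against the clones, 3 to 124 and 6 to 149. Leaving out a day 6 library leaves a lone sample that is assumed to vary like the other groups. The lowest came without day 8 replicate 2 (725 and 134), day 6 replicate 3 (295 and 71) or day 6 replicate 2 (566, 306, 3 and 6). The cause of these shifts was not tested.

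The replicate numbers were not taken as pairs in the main fit. The methods describe independent assays recovered at each day, but no label ties a number to an assay. Deviations of same-numbered day 6 and day 8 libraries correlated by 0.124 and 0.125 in wild type, 0.284 and 0.515 in dK9.1, and -0.069 and 0.042 in dK9.2. In wild-type replicates 1, 2 and 3, regulators of extra-embryonic endoderm summed to 123, 12.9 and 17.1 TPM on day 0. On day 8 they summed to 275, 355 and 286 TPM. Replicate 1 has no day 6 library, so the step cannot be followed within it. With the replicate number as a block, 1112 genes were called higher and 529 lower, the step against the clones had 46 and 54 calls, 20 of the 21 streak genes were called lower, WNT genes had 3 higher and 7 lower calls, and the median of the uptake list was -0.052.

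Directions that turned were all of genes not called. With the block the log2 fold change of *Ascl2* was -0.037, of *Atp2a2* -0.03, of *Fn1* -0.064 and of *Sox17* -0.053, and after median-ratio rescaling that of *Atp2a2* was -0.069 and of *Fn1* -0.016. Over the fits that leave out 1 library, values ran in *Afp* (-0.015 to 3.20), *Apoa4* (-0.33 to 1.52), *Ascl2* (-0.026 to 0.25), *Atp2a2* (-0.026 to 0.053), *Cdh11* (-0.24 to 0.51), *Cdx2* (-0.55 to 0.47), *Fn1* (-0.33 to 0.42), *Foxa2* (-0.50 to 0.20), *Gata2* (-0.038 to 1.75), *Gli1* (-0.25 to 0.026), *Lmo2* (-0.35 to 0.64), *Lrp2* (-0.49 to 0.31), *Phgdh* (-0.17 to 0.12) and *Sox17* (0.040 to 0.72).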
